A study of Mus musculus with 57 samples.

Results

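The livers of 7 mice given concanavalin A (ConA) were compared with the livers of 17 mice given only a vehicle. The 7 ConA libraries and all 17 vehicle libraries were chosen by their labels, out of 57 libraries of the series, and every expressed gene was tested. The comparison was repeated against the 2 vehicle mice that had received saline by the route used for ConA, and a gene is said here to have risen or fallen in both comparisons only if each test called it with the same sign. The series was made to assess a method that estimates the cell types of a liver from its bulk RNA.

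All 24 mice were male wild-type C57BL/6JJcl animals, 6 weeks old at the start and acclimatised for 1 week. They were fasted for 12 h, given 1 administration, and killed 24 h later. ConA was injected into the tail vein, and the mass given is not stated in the labels. Of the vehicle mice, 13 received 0.5% methylcellulose by gavage, 2 received 0.9% saline into the peritoneum, and 2, numbered 7 and 8, received 0.9% saline into the tail vein. RNA came from the perfused liver, from an outer piece of its left lateral lobe, and each library is 1 liver.

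ConA is a lectin from jack beans that binds mannose-rich sugars on cell surfaces. Injected into mice, it settles in the liver sinusoids and activates T and NKT cells, which release interferon gamma and TNF. Resident macrophages and endothelial cells answer with further cytokines and chemokines, neutrophils and monocytes enter, platelets and fibrin collect, and hepatocytes die. The hepatocyte meets such signals with the acute phase response, in which secreted defence proteins rise and many metabolic genes fall.

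Levels are given as CPM, counts scaled by the normalised size of their library. Differences are log2 fold changes, ConA minus vehicle, with ± the standard error, from edgeR's quasi-likelihood test with Benjamini-Hochberg adjustment over all genes tested. A gene was called at an adjusted p under 0.05. Where 2 differences or 2 adjusted p-values stand together, the first is against all 17 vehicle livers and the second against the 2 intravenous saline livers.

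The liver after ConA gained transcripts of chemokines, interferon targets and acute phase proteins. It lost many transcripts of lipid synthesis, of bile acid and drug metabolism, and of resident macrophages, while fatty acid oxidation had no common direction. Over all genes tested in both comparisons 16.2% rose and 18% fell. Against that background 18 of 24 chemokine ligands, 23 of 27 interferon gamma genes and 25 of 26 acute phase genes rose, while 13 of 20 genes of fatty acid synthesis and lipid droplets and 8 of 9 Kupffer cell markers fell. Lcn2, an iron-binding acute phase protein, went from a median of 51.5 to 14950 CPM, and Car3, a carbonic anhydrase, from 1773 to 36.0 CPM.

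Library totals ran from 16652806 to 23670622 estimated counts in the ConA livers and from 13826343 to 35075809 in the vehicle livers. Mitochondrial transcripts took 14.6% to 39.3% of a ConA library (median 24.4%) and 5.12% to 25.4% of a vehicle library (median 13.6%), and without mitochondrial genes 9416 genes were called against all vehicle livers and 4578 in both comparisons, where all genes gave 9384 and 4576. Correlations of log expression between single livers were 0.923 to 0.967 among ConA mice, 0.886 to 0.971 among vehicle mice, and 0.741 to 0.823 between the groups. The lowest median correlations with the own group were those of intravenous saline mouse 8 (0.926), ConA mouse 12 (0.929) and intraperitoneal saline mouse 8 (0.929). The hepatocyte markers were abundant in all 24 livers, albumin (Alb) at 17360 to 47390 CPM (median 39700) in the ConA livers and 20340 to 64110 CPM (median 36650) in the vehicle livers.

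Against all vehicle livers 4730 of 13805 genes were called higher (34.3% of those tested) and 4654 lower (33.7%). Against intravenous saline 2381 of 14132 were called higher (16.8%) and 2446 lower (17.3%). Both comparisons called 2166 genes higher (16.2% of the 13389 tested in both) and 2410 lower (18%), and no gene was called with opposite signs. Among the genes tested in both comparisons, 9100 were called against all vehicle livers and 4633 against intravenous saline, and the 4576 agreeing genes made up 50.3% and 98.8% of these; the 2 comparisons share the ConA livers and the saline pair. Among mice numbered above 4, which include both saline mice, 2952 genes were called in both. The split between higher and lower calls rested on the scaling. With libraries scaled by their totals, 2349 genes were called higher and 7010 lower against all vehicle livers, 1101 and 3752 against intravenous saline, and 954 and 3725 in both, with the median of all genes at -0.61 and -0.56.

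Of the genes tested in both, the 4524 called against all vehicle livers alone had smaller differences and wider errors in the second comparison. Their median absolute difference was 0.76 against all vehicle livers and 0.66 against intravenous saline, while the median standard error went from 0.18 to 0.39. The sign was the same in 4470 of them. Of the genes tested in both, 57 were called against intravenous saline alone.

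At thresholds of 3 and 5 more of the agreeing genes lay on the higher side, and at 1 more lay on the lower side. These thresholds were not repeated under library total scaling. Of the agreeing genes, 1809 rose and 1925 fell by at least 1 on the log2 scale in both comparisons. At a threshold of 3 the counts were 466 and 291, and at 5 they were 156 and 60. In 1851 genes all 7 ConA livers lay above all 17 vehicle livers (13.4% of those tested), and in 1838 all lay below (13.3%). Of the agreeing genes 3361 were separated in this way.

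The genes that led on the higher side included Csf3 and 5 chemokines. The rule for leading genes, here and on the lower side, required that the groups of 7 and 17 did not overlap, so their separation is a description of that choice. Csf3, the cytokine G-CSF that drives neutrophil production, ran from 20.1 to 56.7 CPM (median 42.6) in ConA livers, against 0 to 0.128 CPM (median 0) in vehicle livers and none in either intravenous saline liver. Csf3 differed by 10.88 ± 0.39 from all vehicle livers and by 12.54 ± 0.91 from intravenous saline (adjusted p = 1.13e-17 and 3.78e-05). Since both saline livers were at 0, the fold is best read as a bound: the mean of Csf3 was at least 486-fold higher than a floor of 3 estimated counts in each saline library. Every ConA liver held Csf3, and 15 of the vehicle livers held none.

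Ccl11, the eosinophil chemokine eotaxin, measured 14.3 to 94.3 CPM (median 55.5) in ConA livers, 0 to 0.173 CPM (median 0) in vehicle livers and 0.0274 and 0.0548 CPM in the saline pair. Ccl11 differed by 10.73 ± 0.41 from all vehicle livers and by 10.04 ± 1.0 from intravenous saline (adjusted p = 2.98e-17 and 8.94e-05). Cxcl2 and Cxcl3 are ligands of the neutrophil receptor CXCR2. Cxcl2 measured 250.4 to 654 CPM (median 466), against 0 to 3.44 CPM (median 0.229) in vehicle livers and 0.0822 and 0.438 CPM after intravenous saline (9.72 ± 0.64 and 10.72 ± 0.81, adjusted p = 1.08e-12 and 2.77e-05). Cxcl3 was 5.33 to 13.03 CPM (median 7.69), against 0 to 0.0637 CPM (median 0), and was at 0 in both saline livers (9.44 ± 0.34 and 10.33 ± 0.76, adjusted p = 9.49e-18 and 4.15e-05), at least 104-fold above their floor. Ccl2, which draws monocytes, rose to 364 to 1135 CPM (median 752) from 0.150 to 8.51 CPM (median 1.81), with 3.73 and 4.79 CPM in the saline pair (8.20 ± 0.54 and 7.41 ± 0.61, adjusted p = 1.1e-12 and 4.23e-05). For each of these 4 chemokines the lowest ConA liver lay above the highest vehicle liver.

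Ptgs2 and Nos2, enzymes that make inflammatory mediators, and the maturation factor Duoxa2 also led. Ptgs2, the inducible cyclooxygenase of prostaglandin synthesis, ran from 7.33 to 23.4 CPM (median 13.4) in ConA livers and from 0 to 0.0434 CPM (median 0) in vehicle livers, with 0 in the saline pair (10.17 ± 0.30 and 11.06 ± 0.82, adjusted p = 6.76e-19 and 4.15e-05), at least 173-fold above their floor. Nos2, the inducible nitric oxide synthase, stood at 43.0 to 83.1 CPM (median 60.8) against 0 to 0.765 CPM (median 0.0495), with 0.0274 and 0.0548 CPM after intravenous saline (8.87 ± 0.50 and 10.25 ± 0.51, adjusted p = 5.42e-14 and 6.79e-06). Duoxa2, the maturation factor of the oxidase DUOX2, lay at 23.9 to 87.5 CPM (median 49.4) against 0 to 0.574 CPM (median 0) (9.70 ± 0.51 and 10.64 ± 0.90, adjusted p = 1.24e-14 and 4.76e-05). None of the 3 genes overlapped between the groups of 7 and 17.

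Ptx3, Fgf23, Serpina3i and Ngp led as well. Ptx3, a soluble pattern receptor, measured 1.57 to 9.68 CPM (median 5.31) and was at 0 in all 17 vehicle livers; it was at least 40.5-fold above their floor and 62.6-fold above that of the saline pair. Fgf23, a phosphate hormone known mainly from bone, stood at 13.1 to 36.8 CPM (median 16.9) against 0 to 0.255 CPM (median 0), at least 232-fold above the floor of the saline pair. Serpina3i, a serine protease inhibitor of the acute phase family, measured 19.2 to 82.7 CPM (median 57.1) against 0 to 0.467 CPM (median 0.136) (8.13 ± 0.36 and 7.94 ± 0.68, adjusted p = 5.35e-16 and 4.82e-05). Ngp, a granule protein of neutrophils, was 15.7 to 27.5 CPM (median 19.9) against 0 to 0.247 CPM (median 0) (8.5 ± 0.39 and 8.36 ± 0.46, adjusted p = 7.97e-16 and 6.82e-06). All 4 were separated between the groups.

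Mt3, a metallothionein, and Cxcl10, taken up with the chemokines, were also among them. Mt3 stood at 2.24 to 19.6 CPM (median 5.11) against 0 to 0.182 CPM (median 0) and was at 0 in the saline pair (8.18 ± 0.56 and 10.01 ± 1.65, adjusted p = 1.98e-12 and 0.00181), at least 25-fold above their floor. Its transcript is short, at 536 nucleotides, where 1 read is worth about 3.28 estimated counts, and the floor was therefore 9.85 estimated counts in place of 3. ConA mouse 12 alone reached 19.6 CPM.

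**Figure D1:**
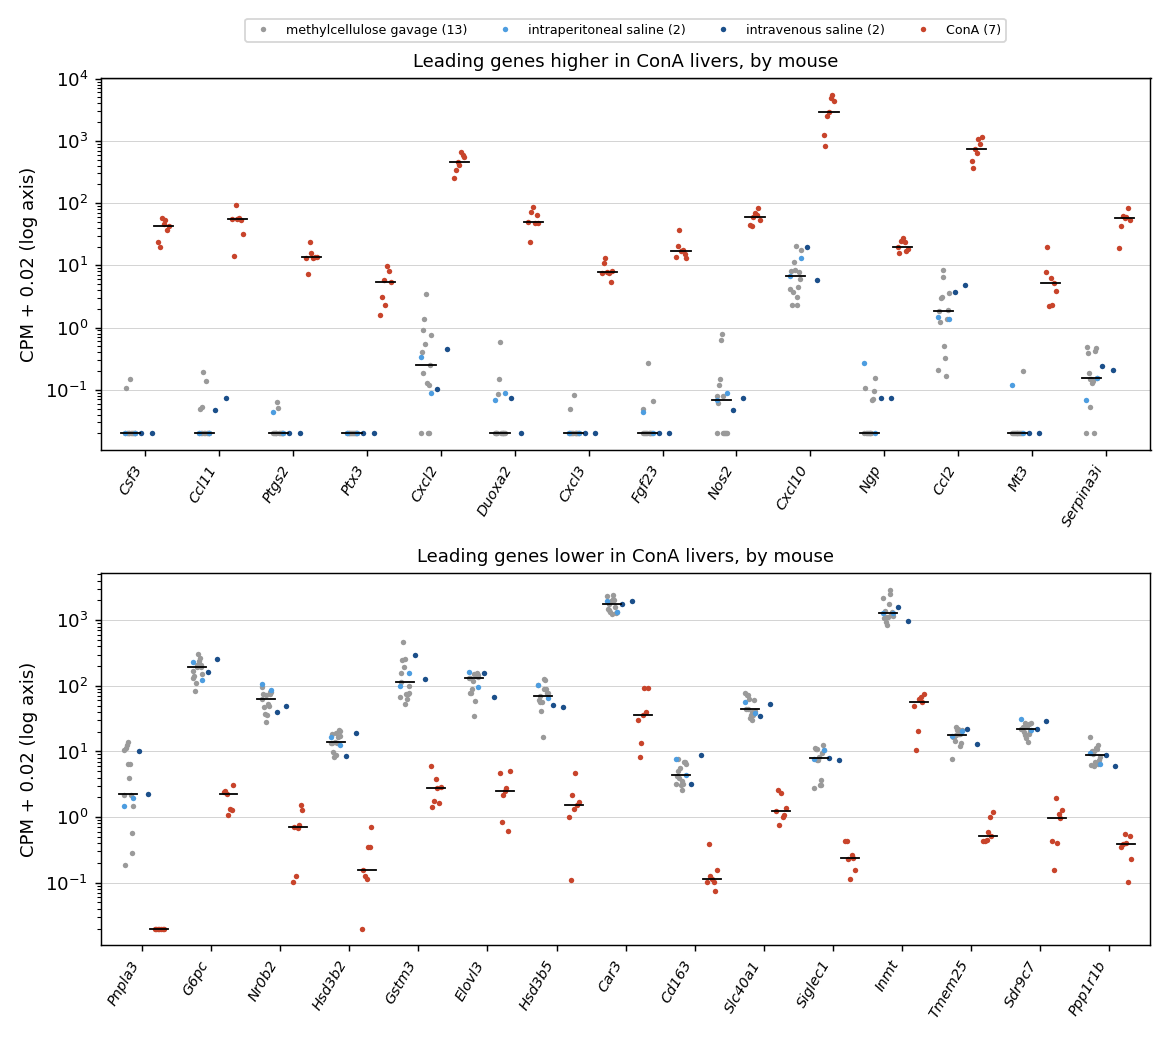
Levels of leading genes on each side in every liver, as CPM plus 0.02 on a log axis; each point is 1 mouse, coloured by group, and black lines are the medians of the 17 vehicle and 7 ConA livers. In every gene shown the ConA points lie wholly above (upper panel) or wholly below (lower panel) the vehicle points, which the rule that chose these genes required.

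The genes that led on the lower side included G6pc, Nr0b2, Elovl3 and the macrophage gene Cd163. Pnpla3, a lipid droplet hydrolase induced by feeding, was at 0 in all 7 ConA livers and at 0.163 to 13.9 CPM (median 2.25) in vehicle livers, so that it was at least 22.2-fold lower than the mean of all vehicle livers and at least 26.6-fold lower than the mean of the saline pair. G6pc, the glucose-6-phosphatase that releases glucose from the hepatocyte, measured 1.04 to 3.10 CPM (median 2.24) against 84.8 to 309.7 CPM (median 192), with 165 and 258 CPM after intravenous saline. G6pc differed by -6.55 ± 0.32 from all vehicle livers and by -6.77 ± 0.36 from intravenous saline (adjusted p = 3.4e-15 and 6.79e-06). Nr0b2, the repressor SHP that bile acids induce, lay at 0.0825 to 1.48 CPM (median 0.687) against 27.98 to 107 CPM (median 62.5), with 39.7 and 49.5 CPM in the saline pair (-6.39 ± 0.43 and -5.96 ± 0.59, adjusted p = 1.36e-12 and 8.67e-05). For these 3 genes the highest ConA liver lay below the lowest vehicle liver.

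Hsd3b2 and Hsd3b5 belong to the hydroxysteroid dehydrogenases, Elovl3 lengthens fatty acids, and Car3 is a carbonic anhydrase abundant in male liver. Hsd3b5 stood at 0.0916 to 4.63 CPM (median 1.48) against 16.8 to 125 CPM (median 70.0) (-5.41 ± 0.49 and -4.90 ± 0.69, adjusted p = 4.39e-10 and 0.000564). Elovl3 measured 0.604 to 5.10 CPM (median 2.47) against 34.9 to 161 CPM (median 131) (-5.44 ± 0.43 and -5.50 ± 0.61, adjusted p = 2.95e-11 and 0.000166). Car3 was 8.15 to 94.1 CPM (median 36.0) against 1253 to 2449 CPM (median 1773) (-5.26 ± 0.41 and -5.44 ± 0.68, adjusted p = 2.15e-11 and 0.000297). The levels of Hsd3b2, 0 to 0.689 CPM (median 0.137) against 8.30 to 21.4 CPM (median 13.8), and of the glutathione transferase Gstm3, 1.42 to 5.94 CPM (median 2.73) against 52.5 to 471 CPM (median 115), were likewise separated.

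Of the macrophage genes on this side, Cd163 encodes the receptor for haptoglobin-haemoglobin complexes, Siglec1 a sialic acid receptor, and Slc40a1 the iron exporter ferroportin. Cd163 stood at 0.0549 to 0.366 CPM (median 0.0950) against 2.59 to 8.76 CPM (median 4.36) (-5.07 ± 0.38 and -5.36 ± 0.56, adjusted p = 1.24e-11 and 0.000125). Siglec1 lay at 0.0950 to 0.413 CPM (median 0.220) against 2.73 to 12.4 CPM (median 8.03) (-4.91 ± 0.39 and -4.94 ± 0.41, adjusted p = 4.19e-11 and 4.31e-05). Slc40a1 stood at 0.747 to 2.61 CPM (median 1.24) against 29.98 to 77.9 CPM (median 43.6) (-5.04 ± 0.29 and -4.93 ± 0.39, adjusted p = 7.23e-14 and 3.59e-05). The other 4 leading genes were Inmt (-4.88 and -4.79), Tmem25 (-4.76 and -4.85), Sdr9c7 (-4.73 and -4.95) and Ppp1r1b (-4.69 and -4.46).

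The cytokines that T and NKT cells release were scarce at 24 h. Summed over the list, with Tnfsf10 included, they stood at 5.58 to 12.5 CPM in ConA livers and 0.807 to 3.25 CPM in vehicle livers. Of 15 such genes only 2 had enough counts to be tested in both comparisons, and neither was called in both; without ConA mouse 8, 1 of 3 was. Ifng, interferon gamma itself, could be tested against intravenous saline only: it measured 0.413 to 2.94 CPM (median 1.92) in ConA livers, 0 to 0.374 CPM (median 0) in vehicle livers and 0 in both saline livers (8.16 ± 1.13, adjusted p = 0.000735), at least 23.1-fold above their floor. Every ConA liver exceeded every vehicle liver in Ifng. Tnfsf10, the death ligand TRAIL, was 2.02 to 6.62 CPM (median 3.39) against 0.656 to 2.00 CPM (median 1.19) and was called against all vehicle livers only (1.67 ± 0.21 and 1.05 ± 0.49, adjusted p = 1.35e-07 and 0.123). Il2, the T cell growth factor, and Il3 were at 0 in all 24 livers.

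Of 15 innate cytokines and their inhibitors, 11 rose in both comparisons and 1 fell (median log2 difference 3.81 against all vehicle livers and 4.17 against intravenous saline; over all genes the medians were 0.00 and 0.03). Each median given for a list is taken over the genes tested in that comparison, which can be more than those tested in both. Il6, which turns on the acute phase response, stood at 2.72 to 13.99 CPM (median 3.56) against 0 to 0.482 CPM (median 0.0743), with 0 and 0.164 CPM in the saline pair. Il6 differed by 5.60 ± 0.54 from all vehicle livers and by 5.93 ± 1.16 from intravenous saline (adjusted p = 1.47e-09 and 0.00331). Il33, an alarmin of dying cells, lay at 9.62 to 19.6 CPM (median 17.9) against 0.248 to 2.31 CPM (median 0.803) (3.81 ± 0.31 and 4.17 ± 0.43, adjusted p = 4.99e-11 and 0.000114). Il1rn, the antagonist of the interleukin 1 receptor, held a narrow range of 290.2 to 332 CPM (median 319) against 0.496 to 9.59 CPM (median 2.52) (6.87 ± 0.38 and 6.82 ± 0.27, adjusted p = 3.27e-14 and 1.95e-06). These 3 were separated between the groups.

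Tnf stood at 0.916 to 3.42 CPM (median 2.47) against 0 to 0.637 CPM (median 0.326), with 0.439 and 0.246 CPM after intravenous saline (2.90 ± 0.46 and 2.58 ± 0.64, adjusted p = 4.03e-06 and 0.0116). The gp130 cytokines Lif, Osm and Il11 differed by 5.02 and 6.39, 5.19 and 4.55, and 5.97 and 8.24 respectively, Il11 being at least 24.3-fold above the floor of the saline pair. Il1b, a product of inflamed myeloid cells, was not called (0.29 ± 0.33 and 0.85 ± 0.43, adjusted p = 0.446 and 0.152): 1.03 to 2.94 CPM (median 2.48) against 0.663 to 5.32 CPM (median 1.37). Il18, made by Kupffer cells and hepatocytes, was the member that fell, to 2.02 to 5.31 CPM (median 3.52) from 6.60 to 16.3 CPM (median 9.50) (-1.47 ± 0.17 and -1.90 ± 0.33, adjusted p = 4.16e-08 and 0.00176). Tnf and Il18 did not overlap between the groups, whereas the highest Il1b value belonged to a vehicle liver. Leaving intravenous saline mouse 8 out gave an adjusted p against intravenous saline of 0.0884 for Tnf (2.20).

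Receptors for these ligands rose in 8 of 15 and fell in none in both comparisons (median log2 difference 1.36 against all vehicle livers and 1.26 against intravenous saline); with libraries scaled by their totals 6 rose and 2 fell. Il1r1, the signalling receptor of interleukin 1, measured 63.2 to 174 CPM (median 120.4) against 2.79 to 18.4 CPM (median 6.59) (3.79 ± 0.32 and 3.35 ± 0.58, adjusted p = 1.42e-10 and 0.00177). Osmr, the oncostatin M receptor, was 7.58 to 12.9 CPM (median 9.21) against 0.328 to 1.64 CPM (median 0.748) (3.64 ± 0.20 and 3.21 ± 0.54, adjusted p = 3.61e-14 and 0.00155). Il22ra1, which lets hepatocytes respond to interleukin 22, stood at 20.6 to 68.7 CPM (median 49.3) against 1.91 to 6.33 CPM (median 3.67) (3.69 ± 0.19 and 3.18 ± 0.48, adjusted p = 1.02e-14 and 0.000845). Ifngr1, Il17ra, Il4ra and Tnfrsf1b rose as well, by 1.92 and 1.92, 2.83 and 2.81, 2.19 and 2.08 and 1.93 and 1.6. The shared subunit Il6st was not called, at 52.3 to 129.6 CPM (median 78.2) against 46.6 to 147 CPM (median 92.5) (-0.09 ± 0.24 and -0.52 ± 0.37, adjusted p = 0.758 and 0.302).

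Chemokine ligands rose in 18 of 24 and fell in 1 (median log2 difference 4.82 against all vehicle livers and 4.60 against intravenous saline). Cxcl9 and Cxcl10, which interferon gamma induces, draw T cells that carry CXCR3. Cxcl9 lay at 1662 to 4790 CPM (median 2572) against 2.82 to 21.0 CPM (median 17.2) (7.59 ± 0.32 and 7.48 ± 0.65, adjusted p = 1.68e-16 and 5.31e-05). Cxcl10 stood at 822 to 5472 CPM (median 2928) against 2.29 to 20.7 CPM (median 6.73), with 19.7 and 5.80 CPM in the saline pair (8.53 ± 0.45 and 7.86 ± 1.10, adjusted p = 1.6e-14 and 0.000552), the lowest ConA value being that of mouse 12. Cxcl1, a neutrophil attractant, measured 235 to 672 CPM (median 436) against 0.372 to 28.1 CPM (median 8.20) (5.58 ± 0.45 and 5.48 ± 0.51, adjusted p = 5.59e-11 and 6.77e-05). Ccl5, a T cell and platelet chemokine, was 95.3 to 188 CPM (median 129.8) against 2.10 to 10.8 CPM (median 4.29) (4.81 ± 0.24 and 4.95 ± 0.47, adjusted p = 6.27e-15 and 7.22e-05). The ligand that fell was Cxcl12, which keeps leukocytes and progenitors in tissues: 35.8 to 55.0 CPM (median 47.6) against 75.4 to 127 CPM (median 100.1) (-1.12 ± 0.11 and -1.02 ± 0.22, adjusted p = 1.67e-09 and 0.00562).

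Interferon gamma acts on the GAS element, type I interferon through the factor ISGF3 on the ISRE, and TNF and interleukin 1 through NF-kB. The 200 bases before the annotated start of 6 genes that rose in both comparisons are shown because they hold matches to these 3 motifs; they were read from RefSeq on GRCm38.p6, 5′ to 3′ on the gene's strand, with every match on either strand in capitals and overlapping matches joined.
Cxcl10 chr5:92348890-92349089 (- strand): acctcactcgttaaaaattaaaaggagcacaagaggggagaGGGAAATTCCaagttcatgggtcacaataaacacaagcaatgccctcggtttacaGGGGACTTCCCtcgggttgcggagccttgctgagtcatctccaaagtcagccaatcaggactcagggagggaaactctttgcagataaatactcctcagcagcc
Cxcl2 chr5:90903699-90903898 (+ strand): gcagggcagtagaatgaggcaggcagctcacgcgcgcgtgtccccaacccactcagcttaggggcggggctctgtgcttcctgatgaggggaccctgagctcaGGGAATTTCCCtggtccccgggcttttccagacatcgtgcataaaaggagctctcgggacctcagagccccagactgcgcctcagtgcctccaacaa
Irf1 chr11:53769814-53770013 (+ strand): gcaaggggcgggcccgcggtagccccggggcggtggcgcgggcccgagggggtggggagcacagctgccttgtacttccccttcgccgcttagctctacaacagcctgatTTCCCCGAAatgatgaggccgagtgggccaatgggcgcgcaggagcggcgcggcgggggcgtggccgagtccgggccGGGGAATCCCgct
Gbp2 chr3:142620463-142620662 (+ strand): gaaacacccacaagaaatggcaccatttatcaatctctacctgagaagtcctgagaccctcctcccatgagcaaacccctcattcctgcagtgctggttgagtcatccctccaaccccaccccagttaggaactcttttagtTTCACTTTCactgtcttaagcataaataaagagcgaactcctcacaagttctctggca
Isg15 chr4:156200819-156201018 (- strand): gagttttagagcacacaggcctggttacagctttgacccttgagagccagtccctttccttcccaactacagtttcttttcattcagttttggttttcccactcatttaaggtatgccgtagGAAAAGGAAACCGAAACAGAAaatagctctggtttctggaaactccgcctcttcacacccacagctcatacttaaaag
Ifit1 chr19:34640689-34640888 (+ strand): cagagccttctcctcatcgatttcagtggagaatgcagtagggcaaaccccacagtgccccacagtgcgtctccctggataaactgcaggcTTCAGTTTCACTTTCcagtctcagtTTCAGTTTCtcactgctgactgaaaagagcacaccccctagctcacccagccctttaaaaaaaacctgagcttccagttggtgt
In Cxcl10 and Cxcl2 the capitals are NF-kB matches, counted back from the start at -159 to -150 and -104 to -94 in Cxcl10 and at -97 to -87 in Cxcl2. Cxcl10 also had an ISRE core match in the longer stretch searched for the shares below, but not within the bases shown. In Irf1 the first run, at -90 to -82, is a GAS match and the second, at -13 to -4, an NF-kB match. In Gbp2 (-58 to -50), Isg15 (-78 to -58) and Ifit1 (-109 to -95 and -84 to -76) the runs are matches to the ISRE core.

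The motifs were TTCNNNGAA for GAS, GAAANNGAA for the ISRE core, and the NF-kB consensus, searched on both strands of the 250 bases before each start. The ISRE core matched in 64.7% of the 17 interferon gamma genes that had a promoter in the table and in 52.6% of the 19 type I interferon genes, against 7.8% of 9948 tested genes and 8.18% of all 27025 promoters. GAS matched in 47.1% and 10.5% of those 2 lists, against 7.31% and 8.13%. NF-kB matched in 40% of the 15 NF-kB genes and 40% of the 10 leading higher genes, against 10.5% and 8.23%. The motifs were not limited to the lists named for them. NF-kB matched in 35.3% of the interferon gamma genes and 15.8% of the type I interferon genes, and the NF-kB genes matched GAS in 26.7% and the ISRE core in 13.3%. The leading higher genes matched GAS in 20% and the ISRE core in 10%. None of the 10 leading lower genes with a promoter matched the ISRE core or NF-kB, and 20% matched GAS. A match describes letters and was not tested as a binding site.

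Genes that interferon gamma induces rose in 23 of 27 and fell in none (median log2 difference 3.51 against all vehicle livers and 3.32 against intravenous saline). Irf1, the first transcription factor of this response, stood at 109.6 to 530.2 CPM (median 318) against 15.4 to 31.7 CPM (median 22.1), with 31.7 and 20.7 CPM after intravenous saline. Irf1 differed by 3.82 ± 0.19 from all vehicle livers and by 3.54 ± 0.62 from intravenous saline (adjusted p = 6.3e-15 and 0.00192). Gbp2, a GTPase that attacks intracellular microbes, lay at 293 to 799 CPM (median 668) against 1.39 to 7.33 CPM (median 3.97) (7.38 ± 0.28 and 6.88 ± 0.52, adjusted p = 2.92e-17 and 2.77e-05). Cd274, the checkpoint ligand PD-L1, stood at 48.0 to 141 CPM (median 106) against 0.372 to 1.605 CPM (median 1.04) (6.59 ± 0.26 and 6.14 ± 0.57, adjusted p = 4.3e-17 and 6.83e-05). Socs1, the inhibitor that ends the signal, measured 8.24 to 27.9 CPM (median 17.4) against 0.0274 to 0.637 CPM (median 0.165) (6.48 ± 0.31 and 7.32 ± 0.81, adjusted p = 2.02e-15 and 0.000158). All 4 were separated between the groups, as was Irf8 (4.68 and 4.73).

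Ciita, the switch of the class II genes, was called in neither comparison. It stood at 0.0950 to 0.854 CPM (median 0.413) against 0.186 to 1.84 CPM (median 0.703) (-0.77 ± 0.38 and -0.91 ± 0.65, adjusted p = 0.0745 and 0.308).

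Type I interferon genes rose in 16 of 24 and fell in none (median log2 difference 3.68 against all vehicle livers and 2.86 against intravenous saline). Isg15, a ubiquitin-like modifier, lay at 479 to 1489 CPM (median 1232) against 8.07 to 43.8 CPM (median 28.9) (5.51 ± 0.25 and 4.84 ± 0.49, adjusted p = 7.63e-16 and 9.62e-05). Rsad2, the antiviral enzyme viperin, stood at 272 to 870.1 CPM (median 604) against 0.689 to 8.16 CPM (median 2.39) (7.85 ± 0.35 and 6.92 ± 0.77, adjusted p = 5.15e-16 and 0.000162). Ifit1, a sensor of foreign RNA caps, measured 28.03 to 262 CPM (median 107) against 0.591 to 5.75 CPM (median 1.57) (5.75 ± 0.39 and 4.90 ± 1.0, adjusted p = 1.75e-12 and 0.00433). Mx1 was 24.5 to 207 CPM (median 140.1) against 0.186 to 4.22 CPM (median 1.11) (6.33 ± 0.45 and 5.74 ± 1.0, adjusted p = 5.02e-12 and 0.00182), and in each of these 4 genes the groups were apart. Oas2, which makes the activator of RNase L, was not called, at 1.73 to 3.89 CPM (median 2.46) against 0.931 to 4.24 CPM (median 2.81) (0.16 ± 0.24 and -0.22 ± 0.37, adjusted p = 0.572 and 0.676).

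In the list of antigen presentation and the immunoproteasome 10 of 21 genes rose and 1 fell (median log2 difference 0.85 against all vehicle livers and 0.55 against intravenous saline), with 6 rising when intravenous saline mouse 8 was left out and 4 when libraries were scaled by their totals. The genes that rose were class I molecules, the peptide transporter and the immunoproteasome. H2-D1, a classical class I molecule, stood at 1333 to 1673 CPM (median 1596) against 232 to 493 CPM (median 414) (2.04 ± 0.14 and 1.95 ± 0.28, adjusted p = 1.31e-12 and 0.000636). H2-Q4, a non-classical one, lay at 270.5 to 541 CPM (median 469) against 9.74 to 42.7 CPM (median 26.5) (3.96 ± 0.20 and 3.61 ± 0.39, adjusted p = 3.82e-15 and 0.000144). Tap1, a subunit of the peptide transporter, stood at 127 to 274 CPM (median 185) against 9.83 to 31.4 CPM (median 17.8) (3.49 ± 0.18 and 3.08 ± 0.42, adjusted p = 7.19e-15 and 0.000519). Psmb10, an immunoproteasome subunit, rose by 2.61 and 2.33; all 4 were apart between the groups.

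Class II genes were not called in both. H2-Aa measured 22.3 to 65.9 CPM (median 39.1) against 19.1 to 62.1 CPM (median 37.3) (0.01 ± 0.20 and -0.11 ± 0.40, adjusted p = 0.984 and 0.85), and its chaperone Cd74 at 78.9 to 180 CPM (median 131) against 49.3 to 165 CPM (median 112) (0.31 ± 0.19 and 0.36 ± 0.39, adjusted p = 0.15 and 0.508). Both overlapped widely, and H2-Aa differed by -0.68 under library total scaling. Ctss, a protease that trims Cd74, was the member that fell (-0.65 ± 0.28 and -1.03 ± 0.31, adjusted p = 0.0412 and 0.0275); its difference turned to 0.58 with only the mice numbered 1 to 4. Class I genes share long stretches of sequence, so the division of reads among them is uncertain. Leaving out intravenous saline mouse 8 took the adjusted p against intravenous saline to 0.463 for Ctss (-0.36). Ctss was no longer called against all vehicle livers when any of ConA mice 3, 4, 5, 8 and 11, gavage mice 7 and 17, intraperitoneal saline mouse 7, or intravenous saline mouse 8 was left out (adjusted p 0.0549 to 0.077).

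NF-kB targets and feedback genes rose in 20 of 21 and fell in none (median log2 difference 3.55 against all vehicle livers and 3.50 against intravenous saline). Nfkbia, the inhibitor that NF-kB itself induces, was 237 to 707 CPM (median 387) against 19.0 to 47.8 CPM (median 30.1) (3.93 ± 0.20 and 3.76 ± 0.57, adjusted p = 7.11e-15 and 0.00086). Tnfaip3, the deubiquitinase A20, stood at 41.9 to 234 CPM (median 133) against 0.683 to 2.36 CPM (median 1.18) (6.82 ± 0.26 and 6.89 ± 0.84, adjusted p = 2.72e-17 and 0.000258). Icam1 and Sele are adhesion molecules on which leukocytes stop. Icam1 lay at 104 to 398 CPM (median 307) against 5.14 to 17.5 CPM (median 8.01) (5.05 ± 0.21 and 5.17 ± 0.60, adjusted p = 1.78e-16 and 0.000199), and Sele at 6.46 to 22.96 CPM (median 11.8) against 0 to 0.510 CPM (median 0.0603) (7.00 ± 0.39 and 7.03 ± 0.69, adjusted p = 4.28e-14 and 8.36e-05). Vcam1 and the RNase Zc3h12a rose as well (3.14 and 2.80; 4.91 and 4.88), and all 6 were apart between the groups. The member not called was Tnfaip2, at 11.4 to 39.1 CPM (median 23.4) against 10.8 to 31.0 CPM (median 19.3).

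Acute phase genes of the hepatocyte rose in 25 of 26 (median log2 difference 2.44 against all vehicle livers and 2.40 against intravenous saline). Saa1, serum amyloid A, stood at 7894 to 18800 CPM (median 17160) against 63.0 to 1902 CPM (median 222), with 336 and 263 CPM after intravenous saline. Saa1 differed by 5.48 ± 0.47 from all vehicle livers and by 5.61 ± 0.48 from intravenous saline (adjusted p = 1.35e-10 and 4.91e-05). Lcn2, which starves bacteria of iron, measured 13080 to 17680 CPM (median 14950) against 7.33 to 603 CPM (median 51.5) (7.34 ± 0.63 and 7.84 ± 0.41, adjusted p = 1.51e-10 and 6.79e-06), the highest vehicle value being that of gavage mouse 18. Hp, haptoglobin, was 14560 to 20840 CPM (median 17310) against 2296 to 6498 CPM (median 3779) (2.11 ± 0.16 and 2.04 ± 0.32, adjusted p = 2.19e-11 and 0.00113). Hamp, the iron hormone hepcidin, stood at 10600 to 21250 CPM (median 14590) against 1430 to 5641 CPM (median 3449) (2.17 ± 0.19 and 2.57 ± 0.44, adjusted p = 3.2e-10 and 0.00176). The groups were apart for each.

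The same list holds the signal chain behind these genes. Stat3 rose by 2.43 and 2.12 and its inhibitor Socs3 by 4.56 and 5.08, the latter from 1.71 to 24.6 CPM (median 3.36) in vehicle livers to 88.7 to 138 CPM (median 121). A2m, a broad protease inhibitor, went from 0 to 0.510 CPM (median 0) to 8.09 to 25.2 CPM (median 14.6) (8.05 ± 0.51 and 8.28 ± 0.91, adjusted p = 5.56e-13 and 0.000158). Crp, a major acute phase protein in humans and a weak one in mice, rose by 1.23 and 0.98, with overlapping groups. Il1rap, the interleukin 1 co-receptor, was called lower against all vehicle livers only (-0.70 ± 0.23 and -0.84 ± 0.39, adjusted p = 0.00871 and 0.123). Saa1 and Saa2 are near-identical copies, so the split of reads between them is uncertain. Crp was no longer called against intravenous saline when any of ConA mice 2, 3, 4, 5, 8 and 11, or intravenous saline mouse 7 was left out (adjusted p 0.0569 to 0.277).

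Of 24 genes of coagulation, fibrinolysis and platelet adhesion 6 rose in both comparisons and 0 fell (median log2 difference 0.03 against all vehicle livers and -0.25 against intravenous saline), while under library total scaling 6 rose and 11 fell, and 2 fell without ConA mouse 3 or without either intravenous saline mouse. F3, the tissue factor that starts clotting, rose to 19.2 to 56.6 CPM (median 32.6) from 0.340 to 1.45 CPM (median 0.976) (5.19 ± 0.19 and 5.59 ± 0.55, adjusted p = 1.32e-17 and 8.36e-05). Thbd, the endothelial anticoagulant thrombomodulin, lay at 13.6 to 29.2 CPM (median 19.0) against 0.817 to 1.78 CPM (median 1.11) (4.09 ± 0.15 and 4.20 ± 0.44, adjusted p = 2.47e-17 and 0.000114). Plaur, the urokinase receptor, stood at 47.3 to 106 CPM (median 71.4) against 0 to 2.20 CPM (median 0.555) (6.81 ± 0.40 and 8.18 ± 0.52, adjusted p = 1.18e-13 and 1.57e-05). These 3 were apart between the groups.

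Antithrombin and factor X, which hepatocytes secrete, were called lower against all vehicle livers only. Serpinc1, antithrombin, measured 1065 to 3109 CPM (median 2170) against 2840 to 4875 CPM (median 3524) (-0.71 ± 0.14 and -0.68 ± 0.32, adjusted p = 5.95e-05 and 0.131). F10 was 143 to 216 CPM (median 183) against 207 to 436 CPM (median 306) (-0.79 ± 0.12 and -0.65 ± 0.23, adjusted p = 1.9e-06 and 0.0504). Prothrombin, F2, was called in neither (0.06 ± 0.11 and 0.14 ± 0.27, adjusted p = 0.63 and 0.719) and differed by -0.61 under library total scaling.

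Complement genes rose in 3 of 23 and fell in 6 (median log2 difference -0.61 against all vehicle livers and -0.59 against intravenous saline); without intravenous saline mouse 8 none rose and 3 fell, and under library total scaling 13 fell and none rose. C1qa, a C1q chain made by macrophages, fell to 10.2 to 26.8 CPM (median 19.8) from 47.6 to 141 CPM (median 102) (-2.32 ± 0.22 and -2.26 ± 0.32, adjusted p = 6.03e-10 and 0.000608). C8a, a pore component made by hepatocytes, fell to 37.1 to 86.7 CPM (median 75.5) from 102 to 224 CPM (median 164) (-1.23 ± 0.16 and -1.33 ± 0.30, adjusted p = 2.75e-07 and 0.00673). Cfb, the alternative pathway protease, rose to 1319 to 1909 CPM (median 1490) from 614 to 961 CPM (median 771) (1.06 ± 0.09 and 1.04 ± 0.24, adjusted p = 1.68e-10 and 0.00801), and C3, the central component, stood at 3772 to 8637 CPM (median 6308) against 2339 to 5287 CPM (median 2951) (0.93 ± 0.14 and 1.10 ± 0.32, adjusted p = 1.45e-06 and 0.0227). The groups overlapped for C3 and not for the other 3. The adjusted p against intravenous saline was 0.085 for C3 (1.18) without intravenous saline mouse 7 and 0.114 for C3 (1.03), 0.0607 for Cfb (0.86) and 0.123 for C8a (-0.81) without intravenous saline mouse 8.

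Among death receptor, necroptosis and pyroptosis genes 9 of 20 rose and 1 fell (median log2 difference 1.06 against all vehicle livers and 0.99 against intravenous saline; 5 rose under library total scaling). Fas, a receptor through which T cells can kill hepatocytes, lay at 18.1 to 97.2 CPM (median 70.6) against 8.502 to 17.8 CPM (median 12.3) (2.45 ± 0.18 and 2.31 ± 0.56, adjusted p = 1.02e-11 and 0.0105). Mlkl, which carries out necroptosis, stood at 19.0 to 32.9 CPM (median 23.9) against 1.33 to 4.49 CPM (median 2.81) (3.03 ± 0.18 and 2.42 ± 0.27, adjusted p = 8.98e-14 and 0.000173). Gsdmd, the pore former of pyroptosis, measured 57.5 to 81.0 CPM (median 58.9) against 15.8 to 33.1 CPM (median 23.6) (1.34 ± 0.11 and 1.16 ± 0.25, adjusted p = 4.27e-11 and 0.00541). Bcl2l1 and Mcl1, survival genes of the same list, rose with them. Bcl2l1, encoding BCL-xL, was 113 to 177 CPM (median 148) against 11.9 to 30.02 CPM (median 22.01) (2.79 ± 0.13 and 2.57 ± 0.25, adjusted p = 2.26e-15 and 8.05e-05), and Mcl1 rose by 1.44 and 1.56. Fadd, the adaptor of Fas, was the gene that fell, to 0.496 to 1.24 CPM (median 0.758) from 1.59 to 3.25 CPM (median 2.59) (-1.59 ± 0.18 and -1.41 ± 0.41, adjusted p = 3.07e-08 and 0.0232). When intravenous saline mouse 7 was left out, the adjusted p against intravenous saline was 0.0952 for Fas (1.91) and 0.206 for Fadd (-1.01).

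Genes that p53 induces rose in 12 of 14 and fell in none (median log2 difference 2.52 against all vehicle livers and 2.41 against intravenous saline; 8 rose under library total scaling). Cdkn1a, the cyclin kinase inhibitor p21, kept to 235 to 302 CPM (median 264) in ConA livers against 3.29 to 20.8 CPM (median 11.9) (4.52 ± 0.25 and 4.33 ± 0.28, adjusted p = 3.34e-14 and 1.62e-05). Mdm2, the ligase that degrades p53, stood at 25.9 to 65.9 CPM (median 45.7) against 5.38 to 11.0 CPM (median 6.72) (2.60 ± 0.16 and 2.41 ± 0.40, adjusted p = 2.04e-13 and 0.00149). Gdf15, a stress hormone, lay at 117 to 338 CPM (median 239.6) against 3.30 to 109 CPM (median 24.8) (2.85 ± 0.47 and 3.69 ± 0.58, adjusted p = 6.88e-06 and 0.00102). The death gene Bbc3 (PUMA) was called lower against all vehicle livers only, with 1.49 to 5.87 CPM (median 4.05) against 3.43 to 12.6 CPM (median 9.24) (-1.13 ± 0.28 and -1.18 ± 0.50, adjusted p = 0.000819 and 0.0955).

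All 18 immediate early genes tested rose in both comparisons (median log2 difference 3.69 against all vehicle livers and 4.45 against intravenous saline), 15 of them under library total scaling and 15 without intravenous saline mouse 8. Atf3, a stress factor, stood at 98.6 to 430.2 CPM (median 213) against 0.310 to 6.51 CPM (median 1.94) (6.76 ± 0.46 and 8.00 ± 0.92, adjusted p = 2.15e-12 and 0.000189). Ier3 measured 179 to 253 CPM (median 227) against 0.0621 to 3.82 CPM (median 0.552) (7.97 ± 0.43 and 7.71 ± 0.39, adjusted p = 1.73e-14 and 6.79e-06). Myc was 80.2 to 206 CPM (median 116) against 1.28 to 11.3 CPM (median 2.62) (5.52 ± 0.30 and 5.74 ± 0.51, adjusted p = 2.91e-14 and 5.6e-05). Fosl1, an AP-1 subunit, went from 0 to 0.191 CPM (median 0.0382) to 5.46 to 17.0 CPM (median 9.49) (7.65 ± 0.39 and 7.38 ± 0.84, adjusted p = 6.3e-15 and 0.000185). The groups were apart for these 4.

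Of 19 genes of the integrated stress response and endoplasmic reticulum chaperones 10 rose and none fell (median log2 difference 1.41 against all vehicle livers and 1.34 against intravenous saline), but only 3 rose under library total scaling and 5 without intravenous saline mouse 8. Hspa5, the chaperone BiP, stood at 646 to 1685 CPM (median 1211) against 146 to 400.2 CPM (median 242) (2.14 ± 0.18 and 2.63 ± 0.39, adjusted p = 1e-10 and 0.000792). Xbp1, a factor of the unfolded protein response, lay at 346 to 643 CPM (median 536) against 81.9 to 128 CPM (median 112) (2.26 ± 0.09 and 2.48 ± 0.30, adjusted p = 1.09e-16 and 0.000244). Atf4 stood at 110.5 to 159 CPM (median 129.6) against 31.2 to 71.6 CPM (median 47.9) (1.41 ± 0.12 and 1.34 ± 0.26, adjusted p = 2.36e-10 and 0.00326). Its target Chac1 was not called (0.32 ± 0.45 and 0.03 ± 0.43, adjusted p = 0.547 and 0.969), and the chaperone Pdia4 stood lower against all vehicle livers only (-0.60 ± 0.13 and -0.35 ± 0.19, adjusted p = 0.000177 and 0.191).

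The list of NRF2 targets, heme oxygenase and metallothioneins split into 5 genes that rose and 4 that fell, of 15 (median log2 difference -0.48 against all vehicle livers and -0.40 against intravenous saline); under library total scaling 4 rose and 5 fell, and 2 fell when either intravenous saline mouse was left out. Metallothioneins bind zinc and belong to the acute phase response of the liver as well. Mt1 measured 11010 to 16090 CPM (median 14680) against 54.8 to 578 CPM (median 115) (6.60 ± 0.33 and 6.81 ± 0.35, adjusted p = 4.77e-15 and 6.79e-06), and Mt2 at 9257 to 14960 CPM (median 11700) against 14.5 to 387 CPM (median 45.7) (7.40 ± 0.50 and 7.21 ± 0.46, adjusted p = 1.61e-12 and 1.57e-05). Slc39a14, the zinc importer of the inflamed liver, was 461 to 1058 CPM (median 793) against 48.6 to 99.2 CPM (median 72.1) (3.43 ± 0.13 and 3.38 ± 0.41, adjusted p = 3.46e-17 and 0.00026). Hmox1, heme oxygenase, stood at 272 to 407 CPM (median 294) against 19.2 to 45.8 CPM (median 28.1) (3.42 ± 0.13 and 3.54 ± 0.31, adjusted p = 3.44e-17 and 5.6e-05). The NRF2 targets of glutathione and thioredoxin chemistry went both ways. Gsr, glutathione reductase, rose in both comparisons (1.26 ± 0.11 and 1.01 ± 0.26, adjusted p = 2.57e-10 and 0.0144). Txnrd1, thioredoxin reductase, and Srxn1, sulfiredoxin, were called higher against all vehicle livers only (0.80 ± 0.09; 1.89 ± 0.28). Under library total scaling Gsr lost its call against intravenous saline (0.43) and Txnrd1 its call against all vehicle livers (0.21). Nqo1, Gclc and Gclm were called lower against all vehicle livers only (-0.57 ± 0.21; -0.48 ± 0.17; -0.58 ± 0.11), and glutathione transferases were among the genes that fell. Without intravenous saline mouse 8 the adjusted p against intravenous saline was 0.0869 for Gsr (0.90). Nqo1 was no longer called against all vehicle livers when any of ConA mice 3, 4 and 5 was left out (adjusted p 0.0519 to 0.056).

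Genes of hypoxia and glycolysis rose in 14 of 16 and fell in 1 (median log2 difference 3.54 against all vehicle livers and 3.70 against intravenous saline). Slc2a1, the glucose transporter GLUT1 that hepatocytes barely express, lay at 179 to 262 CPM (median 237) against 4.52 to 12.6 CPM (median 5.89) (4.92 ± 0.19 and 5.10 ± 0.29, adjusted p = 2.69e-17 and 8.89e-06). Pkm, the pyruvate kinase of proliferating and immune cells, stood at 286 to 476 CPM (median 441) against 9.68 to 37.2 CPM (median 19.3) (4.29 ± 0.20 and 4.24 ± 0.42, adjusted p = 8.35e-16 and 8.82e-05). Pfkfb3, which speeds glycolysis, measured 95.0 to 210.3 CPM (median 180.3) against 2.71 to 6.51 CPM (median 4.62) (5.09 ± 0.18 and 5.22 ± 0.49, adjusted p = 5.67e-18 and 7.02e-05). Adm, a vasodilator peptide induced by low oxygen, was 202 to 461 CPM (median 274) against 0.428 to 2.36 CPM (median 1.20) (8.00 ± 0.25 and 8.10 ± 0.56, adjusted p = 9.3e-19 and 2.01e-05). The groups were apart for these 4, while Pdk1, a pyruvate dehydrogenase kinase, fell (-0.84 ± 0.17 and -1.18 ± 0.28, adjusted p = 0.00012 and 0.00984). Leaving intravenous saline mouse 8 out gave an adjusted p against intravenous saline of 0.0778 for Pdk1 (-1.01).

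Of 16 cell cycle and DNA replication genes 3 rose and 1 fell, where 16.2% and 18% of all genes did (median log2 difference 0.67 against all vehicle livers and 0.45 against intravenous saline), while none rose under library total scaling and 1 when either intravenous saline mouse was left out. The 3 were Rrm2, a subunit of ribonucleotide reductase (1.64 ± 0.16 and 1.34 ± 0.33, adjusted p = 1.51e-09 and 0.0114), Ccne1, cyclin E1 (2.59 ± 0.27 and 1.85 ± 0.55, adjusted p = 6.82e-09 and 0.0248), and the replicative helicase subunit Mcm6 (1.07 ± 0.15 and 0.73 ± 0.25, adjusted p = 4.93e-07 and 0.047). E2f1 fell, to 0.0950 to 0.331 CPM (median 0.165) from 0.931 to 1.87 CPM (median 1.47) (-2.86 ± 0.21 and -2.77 ± 0.54, adjusted p = 1.05e-11 and 0.00341). Mki67, the standard mark of cycling cells, was too low to test, at 0.137 to 0.641 CPM (median 0.331) against 0.0495 to 0.712 CPM (median 0.0681). The adjusted p against intravenous saline was 0.0744 for Rrm2 (1.26) and 0.0784 for E2f1 (-2.19) without intravenous saline mouse 7 and 0.154 for Ccne1 (1.28) without intravenous saline mouse 8. Mcm6 was no longer called against intravenous saline when any of ConA mice 2, 3, 4, 5, 8, 11 and 12, or intravenous saline mice 7 and 8 was left out (adjusted p 0.0575 to 0.161).

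**Figure D2:**
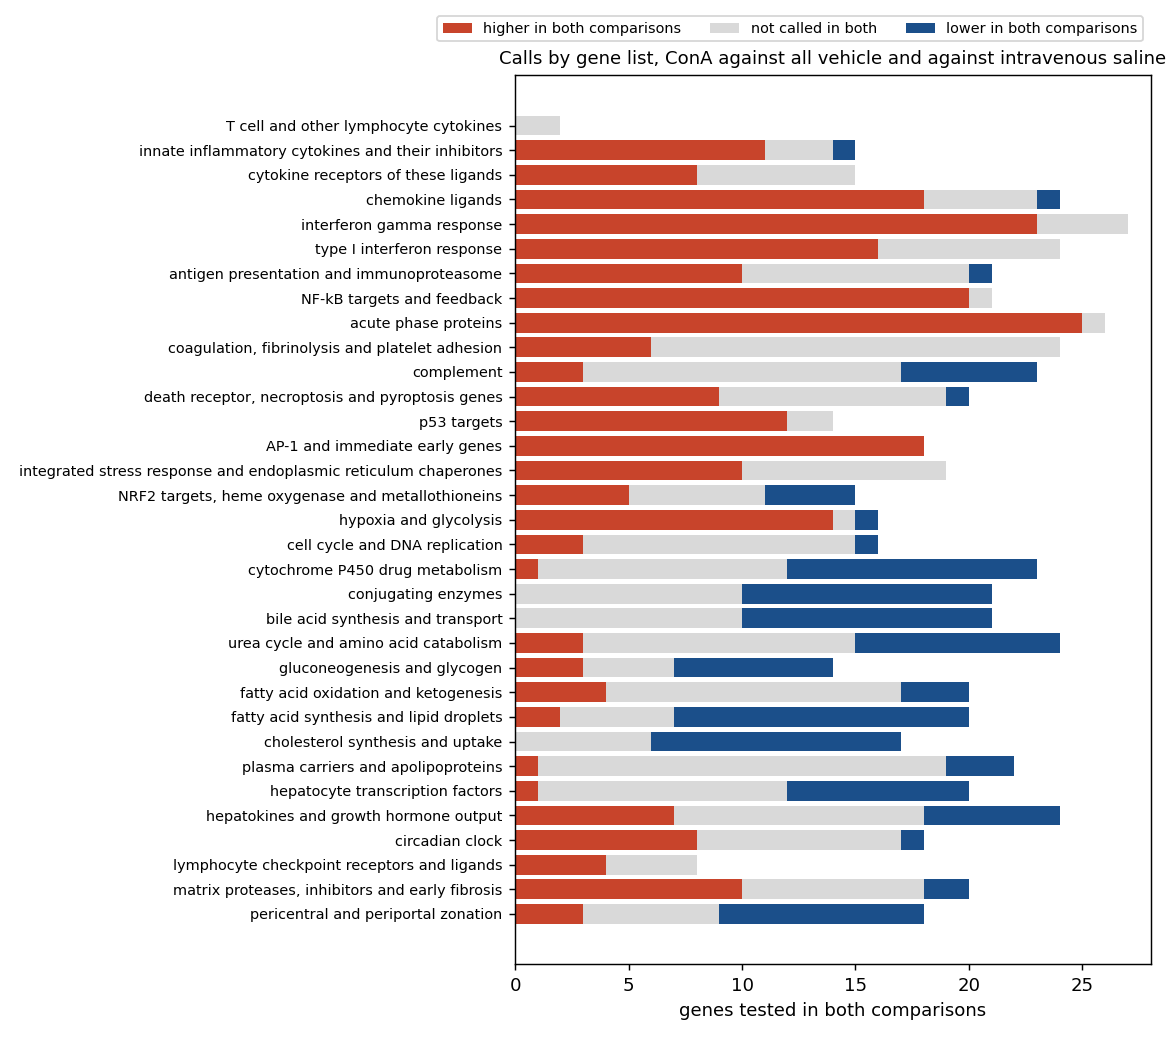
Number of genes tested in both comparisons in each of 33 gene lists (horizontal axis), divided into those called higher in both (red), lower in both (blue) and not called in both (grey). The bars of acute phase proteins (25 of 26), NF-kB targets (20 of 21) and immediate early genes (18 of 18) are red nearly throughout, those of coagulation and lymphocyte cytokines are mostly or wholly grey, and those of conjugating enzymes, bile acids and cholesterol hold no red.

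Drug metabolism genes fell unevenly. Of 23 cytochrome P450 genes and their regulators 11 fell in both comparisons and 1 rose (median log2 difference -1.01 against all vehicle livers and -1.21 against intravenous saline); 17 fell under library total scaling, 7 without intravenous saline mouse 7 and 5 without mouse 8. Cyp1a2, the caffeine oxidase, stood at 20.5 to 105 CPM (median 56.0) against 342 to 807 CPM (median 502), with 502 and 538 CPM after intravenous saline. Cyp1a2 differed by -3.07 ± 0.23 from all vehicle livers and by -3.15 ± 0.40 from intravenous saline (adjusted p = 7.75e-12 and 0.000323). Cyp2c29 lay at 28.1 to 162 CPM (median 136) against 639 to 1160 CPM (median 866) (-2.94 ± 0.25 and -3.00 ± 0.47, adjusted p = 1.24e-10 and 0.000998). The xenobiotic receptors Nr1i3 (CAR) and Nr1i2 (PXR) fell, with differences of -2.04 and -2.27 for Nr1i3 and -1.73 and -1.88 for Nr1i2. All 4 were apart between the groups.

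Cyp2e1, which oxidises ethanol and acetaminophen, was not called: 918 to 3948 CPM (median 3092) against 1546 to 2903 CPM (median 2256), with ConA mouse 12 at the low end (0.23 ± 0.17 and 0.21 ± 0.43, adjusted p = 0.259 and 0.738; -0.46 under library total scaling). Cyp2d9 was not called either (-0.20 ± 0.21 and -0.21 ± 0.41, adjusted p = 0.424 and 0.715). Por, which feeds electrons to all microsomal P450 enzymes, was the member that rose, to 294 to 470.1 CPM (median 373) from 57.9 to 190.1 CPM (median 125) (1.54 ± 0.15 and 1.59 ± 0.24, adjusted p = 1.79e-09 and 0.000786).

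Conjugating enzymes fell in 11 of 21 and rose in none (median log2 difference -1.08 against all vehicle livers and -1.31 against intravenous saline; 18 fell under library total scaling and 7 without intravenous saline mouse 8). Gsta3 stood at 82.7 to 239 CPM (median 179) against 1383 to 2076 CPM (median 1593) (-3.29 ± 0.18 and -3.60 ± 0.34, adjusted p = 4.16e-14 and 7.22e-05), and Gstm1 at 229.9 to 587 CPM (median 407) against 1221 to 2651 CPM (median 1755) (-2.12 ± 0.19 and -2.15 ± 0.34, adjusted p = 2.22e-10 and 0.00107); both are glutathione transferases, and their groups were apart. Ugt1a1, which conjugates bilirubin, was not called, at 86.6 to 235 CPM (median 187) against 181 to 260.3 CPM (median 212) (-0.27 ± 0.12 and -0.39 ± 0.30, adjusted p = 0.053 and 0.338).

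Bile acid genes fell in 11 of 21 and rose in none (median log2 difference -1.34 against all vehicle livers and -1.89 against intravenous saline; 17 fell under library total scaling). Cyp7a1, the rate-limiting enzyme of bile acid synthesis, varied widely among vehicle livers: it measured 0.0458 to 11.1 CPM (median 0.620) against 2.18 to 481 CPM (median 70.1), with 3.45 and 146 CPM in the saline pair (-5.04 ± 1.03 and -4.59 ± 1.31, adjusted p = 0.000119 and 0.0212). Cyp8b1, which sets the share of cholic acid, was 8.11 to 55.6 CPM (median 44.6) against 117 to 366 CPM (median 212) (-2.49 ± 0.28 and -2.85 ± 0.47, adjusted p = 1.65e-08 and 0.00136). Abcb11, the bile salt export pump, stood at 4.76 to 19.7 CPM (median 14.9) against 61.7 to 149.5 CPM (median 93.5) (-2.83 ± 0.22 and -3.02 ± 0.40, adjusted p = 2.32e-11 and 0.000384). Abcc2, the exporter of conjugated bilirubin, lay at 6.96 to 18.6 CPM (median 13.6) against 57.6 to 130 CPM (median 90.1) (-2.74 ± 0.20 and -2.95 ± 0.32, adjusted p = 6.4e-12 and 0.000136). Nr1h4, the bile acid receptor FXR, fell with differences of -1.75 and -1.89; of these 5 genes only Cyp7a1 overlapped. Leaving out intravenous saline mouse 8 took the adjusted p against intravenous saline to 0.944 for Cyp7a1 (-0.21).

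Slc10a1, the uptake transporter NTCP, lay wholly below the vehicle livers (31.6 to 226 CPM (median 181) against 256 to 656 CPM (median 389.7)) but was called against all vehicle livers only (-1.34 ± 0.24 and -1.27 ± 0.48, adjusted p = 2.94e-05 and 0.0666).

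The urea cycle and amino acid list held 9 genes that fell and 3 that rose, of 24 (median log2 difference -0.78 against all vehicle livers and -0.82 against intravenous saline; 1 rose and 15 fell under library total scaling, and 1 rose without intravenous saline mouse 8). Otc, of the urea cycle, measured 12.46 to 48.5 CPM (median 44.2) against 49.2 to 173 CPM (median 96.3) (-1.27 ± 0.25 and -1.66 ± 0.44, adjusted p = 6.72e-05 and 0.0152). Cps1, the first step of that cycle, was called against all vehicle livers only (-1.11 ± 0.21 and -1.10 ± 0.40, adjusted p = 3.92e-05 and 0.0559). Sdsl, a serine dehydratase homologue, rose to 60.7 to 92.3 CPM (median 70.9) from 2.90 to 23.1 CPM (median 10.9) (2.71 ± 0.22 and 3.78 ± 0.41, adjusted p = 6.95e-11 and 0.000154). When intravenous saline mouse 8 was left out, the adjusted p against intravenous saline was 0.342 for Otc (-0.73).

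Of 14 gluconeogenesis and glycogen genes 7 fell and 3 rose (median log2 difference -0.66 against all vehicle livers and -1.09 against intravenous saline). Beside G6pc, Slc2a2, the hepatocyte's glucose transporter GLUT2, was 4.26 to 19.9 CPM (median 15.0) against 74.6 to 169.6 CPM (median 119) (-3.04 ± 0.22 and -3.31 ± 0.37, adjusted p = 5.71e-12 and 0.000171). Pygl, liver glycogen phosphorylase, stood at 30.8 to 80.0 CPM (median 59.0) against 246 to 468 CPM (median 295) (-2.37 ± 0.17 and -2.43 ± 0.29, adjusted p = 4.33e-12 and 0.000217). Pck1, the other key enzyme of gluconeogenesis, was not called: 256 to 716 CPM (median 510) against 170.2 to 1231 CPM (median 730.1) (-0.56 ± 0.33 and -0.88 ± 0.41, adjusted p = 0.134 and 0.12). Pcx, pyruvate carboxylase, rose (1.02 ± 0.13 and 1.07 ± 0.28, adjusted p = 1.21e-07 and 0.0145), and so did Igfbp1, a binding protein that insulin represses, to 1178 to 2541 CPM (median 1848) from 7.57 to 402 CPM (median 174) (3.43 ± 0.43 and 2.85 ± 0.52, adjusted p = 1.25e-07 and 0.00243). Without intravenous saline mouse 8 the adjusted p against intravenous saline was 0.0843 for Pcx (0.64).

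Fatty acid oxidation had no common direction, with 4 of 20 genes higher and 3 lower in both (median log2 difference 0.10 against all vehicle livers and -0.17 against intravenous saline); under library total scaling 3 rose and 8 fell, and without intravenous saline mouse 7 1 fell. The PPAR alpha targets Cyp4a10 and Acot1 rose. Cyp4a10 lay at 832 to 3126 CPM (median 2165) against 224 to 784 CPM (median 321) (2.56 ± 0.20 and 2.56 ± 0.45, adjusted p = 2.31e-11 and 0.002), and Acot1 at 83.0 to 310 CPM (median 143) against 10.8 to 28.1 CPM (median 17.3) (3.18 ± 0.18 and 3.01 ± 0.51, adjusted p = 3.43e-14 and 0.00159). Cpt2, of the mitochondrial carnitine system, fell to 18.8 to 28.3 CPM (median 21.6) from 54.4 to 78.0 CPM (median 64.9) (-1.54 ± 0.10 and -1.68 ± 0.21, adjusted p = 5.68e-13 and 0.000291). All 3 were apart between the groups.

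Of 20 genes of fatty acid synthesis and lipid droplets 13 fell and 2 rose (median log2 difference -2.14 against all vehicle livers and -2.01 against intravenous saline); 4 rose without ConA mouse 12 and 1 without intravenous saline mouse 8. Srebf1, the transcription factor of the pathway, stood at 35.1 to 106 CPM (median 62.0) against 115 to 507 CPM (median 322) (-2.42 ± 0.25 and -1.86 ± 0.42, adjusted p = 4.11e-09 and 0.00753). Acaca, acetyl-CoA carboxylase, measured 2.31 to 7.17 CPM (median 3.80) against 24.4 to 75.3 CPM (median 45.5) (-3.33 ± 0.28 and -3.39 ± 0.37, adjusted p = 1.03e-10 and 0.000147). Fasn and Scd1, the synthase and the desaturase, fell, with differences of -2.64 and -2.16 for Fasn and -3.07 and -3.24 for Scd1. Cidec, which enlarges lipid droplets, rose to 43.5 to 135 CPM (median 84.1) from 0.124 to 1.20 CPM (median 0.588) (7.13 ± 0.29 and 7.89 ± 0.63, adjusted p = 1.04e-16 and 3.74e-05), and the coat protein Plin2 to 352 to 867 CPM (median 526) from 152 to 288 CPM (median 192) (1.49 ± 0.14 and 1.23 ± 0.38, adjusted p = 1.41e-09 and 0.0305). All 6 were apart between the groups. The adjusted p against intravenous saline was 0.234 for Srebf1 (-0.87), 0.346 for Fasn (-0.64) and 0.0618 for Plin2 (1.57) without intravenous saline mouse 7 and 0.191 for Plin2 (0.97) without intravenous saline mouse 8.

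Cholesterol synthesis and uptake fell in 11 of 17 genes and rose in none (median log2 difference -1.49 against all vehicle livers and -1.63 against intravenous saline). Hmgcs1 was 3.51 to 13.2 CPM (median 7.19) against 18.5 to 90.8 CPM (median 32.9) (-2.35 ± 0.33 and -3.15 ± 0.38, adjusted p = 6.31e-07 and 0.000262). It makes the precursor of mevalonate, and its groups were apart.

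Of 22 plasma carriers and apolipoproteins 3 fell and 1 rose in both comparisons (median log2 difference -0.01 against all vehicle livers and 0.13 against intravenous saline), with 4 lower and 7 higher against all vehicle livers, although 9 fell under library total scaling and 1 without intravenous saline mouse 7. Over all genes 33.7% were called lower and 34.3% higher against all vehicle livers. Alb was not called (0.01 ± 0.19 and 0.23 ± 0.37, adjusted p = 0.961 and 0.664; -0.64 under library total scaling). Serpina6, the cortisol carrier, fell to 3.57 to 35.2 CPM (median 18.1) from 115 to 178 CPM (median 136) (-2.86 ± 0.27 and -3.00 ± 0.54, adjusted p = 7.38e-10 and 0.00222), and Serpina7, the thyroxine carrier, rose to 73.3 to 193 CPM (median 135) from 2.36 to 29.6 CPM (median 7.16) (3.72 ± 0.35 and 2.92 ± 0.57, adjusted p = 7.65e-10 and 0.00329). Ttr (-0.90 and -0.99) and Apom (-1.03 and -1.05) fell as well. Of the 5 genes called against all vehicle livers that were most abundant in the vehicle livers, mitochondrial and Mup genes apart, Trf and Apoa1 stood higher there (0.42 ± 0.11; 0.50 ± 0.14) and Serpina1c, Apoc3 and Serpina3k differed by -0.52 ± 0.18, -0.53 ± 0.13 and 0.59 ± 0.16; Trf, Apoa1 and Serpina3k turned negative or close to 0 under library total scaling, at -0.20, -0.15 and -0.06. Leaving intravenous saline mouse 7 out gave an adjusted p against intravenous saline of 0.216 for Ttr (-0.61) and 0.06 for Apom (-0.85). Serpina3k was no longer called against intravenous saline when any of ConA mice 2 and 4, or intravenous saline mice 7 and 8 was left out (adjusted p 0.0577 to 0.152).

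**Figure D3:**
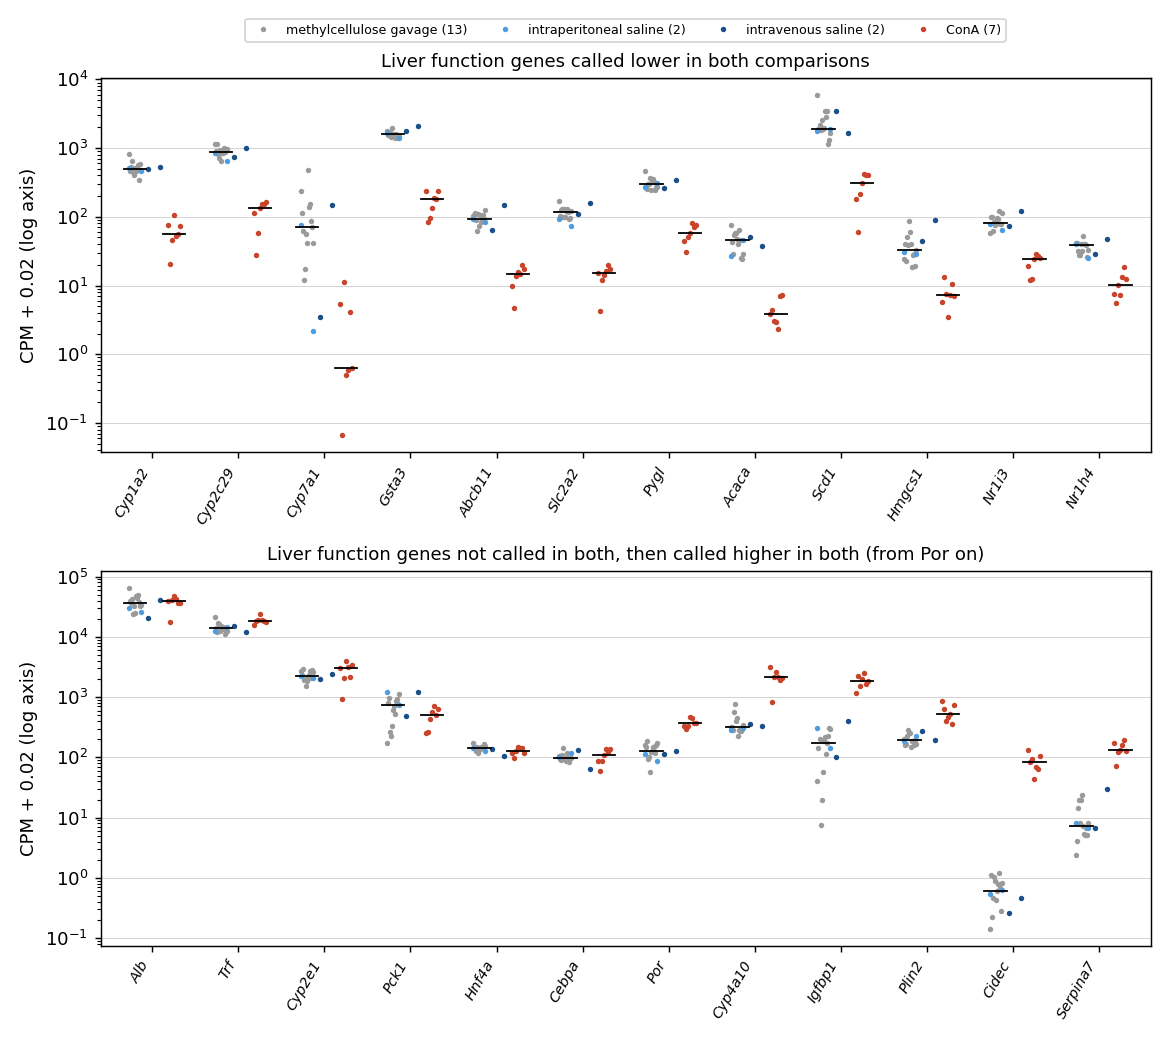
Levels of liver function genes in every liver, as CPM plus 0.02 on a log axis; points and black median lines are as in the plot of leading genes. The upper panel shows 12 genes that fell in both comparisons; in the lower panel the first 6 genes, from Alb to Cebpa, were not called in both and the last 6, from Por to Serpina7, rose in both.

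Hepatocyte transcription factors fell in 8 of 20 and rose in 1 (median log2 difference -0.49 against all vehicle livers and -0.02 against intravenous saline); 4 fell without intravenous saline mouse 7, while 2 rose without ConA mouse 3 and none without intravenous saline mouse 8. Hnf4a, which holds the hepatocyte's identity, was not called, at 96.7 to 148 CPM (median 126) against 107 to 174 CPM (median 145) (-0.16 ± 0.09 and 0.00 ± 0.21, adjusted p = 0.125 and 0.994). Cebpa was not called either (0.06 ± 0.14 and 0.03 ± 0.36, adjusted p = 0.742 and 0.963; -0.61 under library total scaling). Foxa2 fell to 2.02 to 6.09 CPM (median 4.08) from 6.79 to 33.6 CPM (median 15.3) (-2.12 ± 0.27 and -1.57 ± 0.40, adjusted p = 1.89e-07 and 0.0132), and its relative Foxa3 rose to 29.4 to 41.2 CPM (median 35.6) from 9.80 to 24.3 CPM (median 16.1) (1.0 ± 0.12 and 1.20 ± 0.29, adjusted p = 6.53e-08 and 0.0105). The Foxa2 and Foxa3 groups were apart in opposite directions. The adjusted p against intravenous saline was 0.277 for Foxa2 (-0.80) without intravenous saline mouse 7 and 0.0555 for Foxa3 (0.75) without intravenous saline mouse 8.

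The hepatokine and growth hormone list held 7 genes that rose and 6 that fell, of 24 (median log2 difference 0.61 against all vehicle livers and 0.55 against intravenous saline); under library total scaling 6 rose and 8 fell, and without intravenous saline mouse 7 3 fell. Socs2, a feedback inhibitor of growth hormone, stood at 9.76 to 28.8 CPM (median 18.8) against 0.548 to 6.03 CPM (median 1.43) (3.42 ± 0.33 and 3.46 ± 0.64, adjusted p = 1.23e-09 and 0.00247). The receptor Ghr fell (-1.07 ± 0.20 and -1.19 ± 0.36, adjusted p = 3.55e-05 and 0.0268). Igf1, the main output of the hormone, was not called (0.20 ± 0.18 and 0.51 ± 0.32, adjusted p = 0.352 and 0.25; -0.46 under library total scaling). The male-biased genes Hsd3b5 and Elovl3, described above, belong to this list. Leaving out intravenous saline mouse 8 took the adjusted p against intravenous saline to 0.289 for Ghr (-0.71).

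Clock genes rose in 8 of 18 and fell in 1 (median log2 difference 0.81 against all vehicle livers and 1.16 against intravenous saline; 6 rose and 4 fell under library total scaling, none fell without ConA mouse 2, 4 or 8 or intravenous saline mouse 7, and 2 fell without ConA mouse 5). Per1, a repressor also induced by glucocorticoids, measured 88.8 to 198 CPM (median 165) against 1.80 to 7.82 CPM (median 5.99) (4.76 ± 0.18 and 4.90 ± 0.42, adjusted p = 2.69e-17 and 4.82e-05). Bhlhe40 was 258 to 555 CPM (median 328) against 20.8 to 58.3 CPM (median 35.1) (3.43 ± 0.19 and 3.52 ± 0.41, adjusted p = 2.16e-14 and 0.000192). Nr1d1 (REV-ERB alpha) stood at 78.9 to 256 CPM (median 155) against 2.52 to 60.7 CPM (median 36.2) (2.43 ± 0.42 and 3.02 ± 0.53, adjusted p = 1.6e-05 and 0.00191). Arntl (BMAL1), which drives the loop, was called lower against all vehicle livers only (-0.63 ± 0.17 and -0.92 ± 0.33, adjusted p = 0.00178 and 0.0524). The hour of killing is not in the labels.

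Zonation genes are those that hepatocytes near the central vein or the portal tract express unequally. Of 18 such genes 9 fell and 3 rose (median log2 difference -0.86 against all vehicle livers and -0.97 against intravenous saline; 5 fell without intravenous saline mouse 7). The pericentral WNT targets Lgr5 and Axin2 fell, Lgr5 to 0 to 0.495 CPM (median 0.110) from 1.02 to 3.29 CPM (median 2.07) (-3.79 ± 0.37 and -3.76 ± 0.77, adjusted p = 1.8e-09 and 0.00422) and Axin2 with differences of -2.45 and -2.38. Glul, glutamine synthetase of the same cells, was called higher against all vehicle livers only (0.52 ± 0.16 and 0.51 ± 0.42, adjusted p = 0.00611 and 0.376) and differed by -0.16 under library total scaling. Hal, a periportal gene of histidine breakdown, fell with differences of -1.65 and -1.51. When intravenous saline mouse 7 was left out, the adjusted p against intravenous saline was 0.106 for Axin2 (-1.62).

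Matrix genes rose in 10 of 20 and fell in 2 (median log2 difference 1.34 against all vehicle livers and 1.38 against intravenous saline; 8 rose and 5 fell under library total scaling, and 1 fell without intravenous saline mouse 8). Timp1, the inhibitor of matrix proteases, stood at 41.4 to 101 CPM (median 58.2) against 0 to 4.37 CPM (median 0.460) (6.07 ± 0.54 and 5.49 ± 0.55, adjusted p = 2.59e-10 and 9.38e-05). Ccn1, a matrix signal protein, lay at 174 to 530.2 CPM (median 265) against 2.98 to 9.86 CPM (median 6.53) (5.57 ± 0.22 and 5.77 ± 0.58, adjusted p = 5.31e-17 and 9.28e-05). Col4a1, a basement membrane collagen, stood at 177 to 362 CPM (median 303) against 13.8 to 40.04 CPM (median 27.8) (3.42 ± 0.17 and 3.50 ± 0.43, adjusted p = 6.15e-15 and 0.00026). The fibrillar collagen Col1a1 was called lower against all vehicle livers only (-0.69 ± 0.29 and -1.0 ± 0.47, adjusted p = 0.0405 and 0.123), and the protease Mmp19 fell to 3.42 to 5.54 CPM (median 4.89) from 24.1 to 40.8 CPM (median 31.1) (-2.72 ± 0.13 and -2.73 ± 0.24, adjusted p = 1.09e-15 and 4.91e-05). Col1a1 was no longer called against all vehicle livers when any of ConA mice 3, 8, 11 and 12, gavage mouse 3, intraperitoneal saline mouse 7, or intravenous saline mouse 7 was left out (adjusted p 0.054 to 0.101).

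Lymphocyte checkpoint genes rose in 4 of 8 that could be tested and fell in none (median log2 difference 1.6 against all vehicle livers and 2.47 against intravenous saline, over the 9 and 12 genes tested in each). Ctla4, an inhibitory receptor of activated and regulatory T cells, measured 0.824 to 3.64 CPM (median 1.39) against 0 to 0.0495 CPM (median 0) and was at 0 in the saline pair (6.85 ± 0.45 and 7.95 ± 1.16, adjusted p = 1.04e-12 and 0.00099), at least 20-fold above its floor. Tnfrsf9, the activation receptor 4-1BB, was 19.2 to 60.1 CPM (median 37.3) against 0 to 1.59 CPM (median 0.186) (6.95 ± 0.47 and 7.74 ± 0.82, adjusted p = 1.41e-12 and 0.000129). Pdcd1, the receptor PD-1, was too low to test, at 0 to 0.183 CPM (median 0) against 0 to 0.0603 CPM (median 0.0248).

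**Figure D4:**
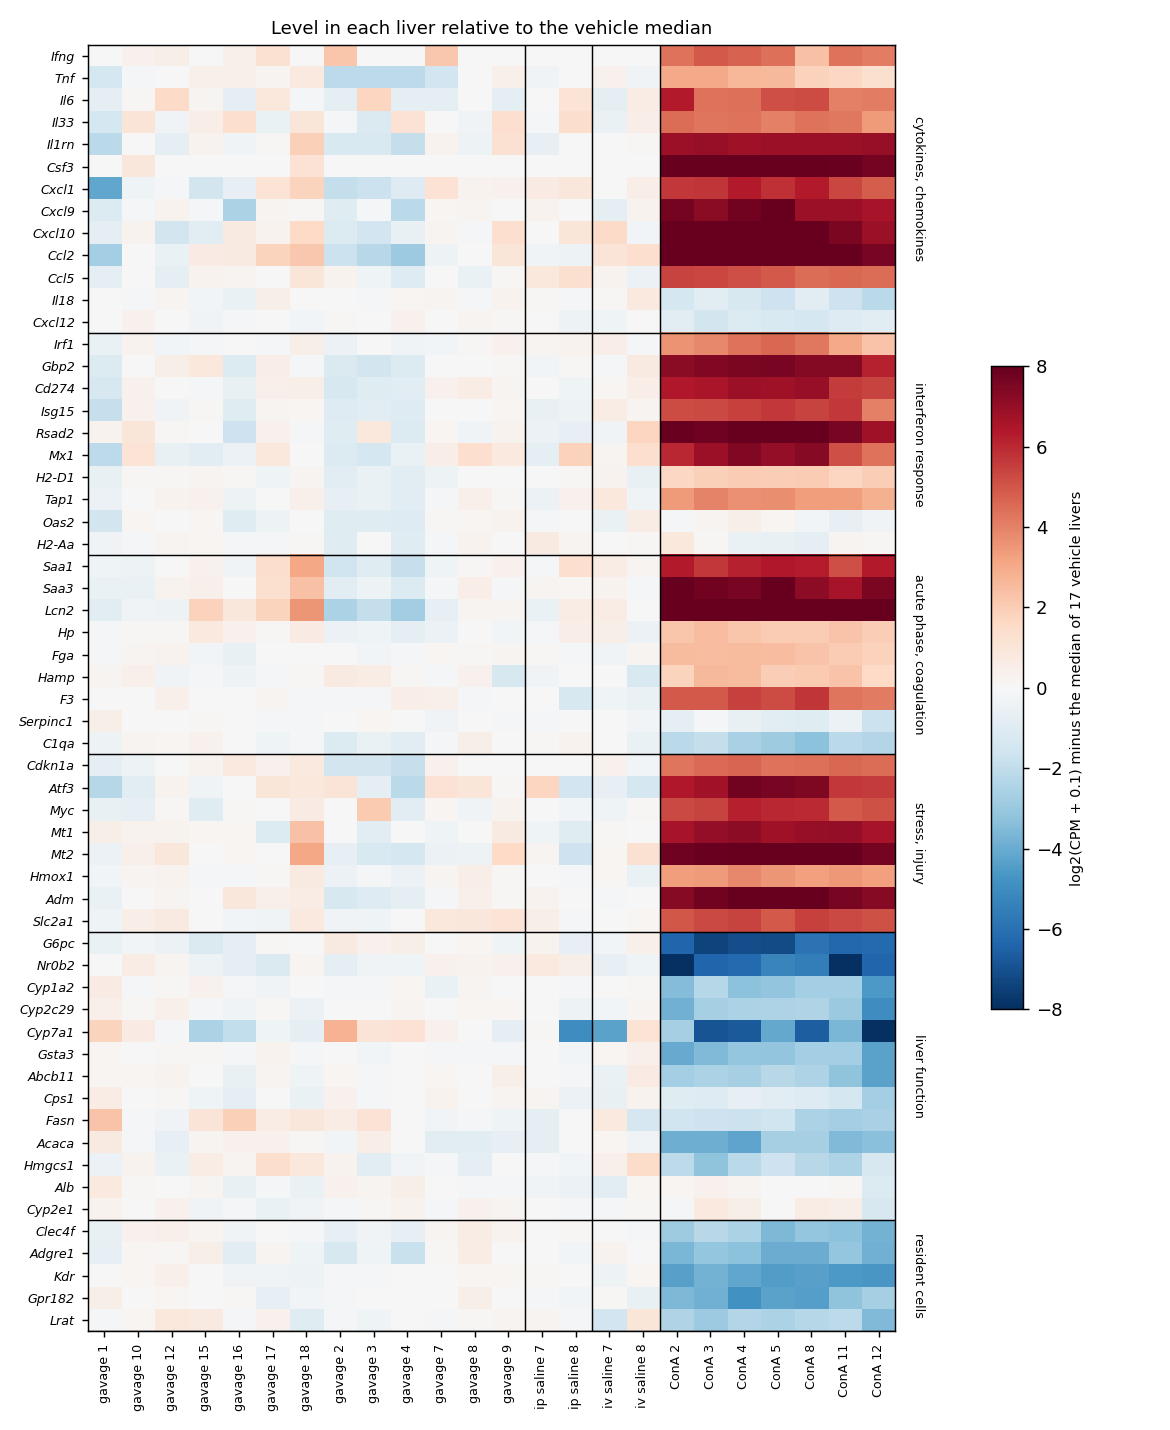
Level of 58 genes (rows, in 6 labelled blocks) in each of the 24 livers (columns: 13 gavage, 2 intraperitoneal saline, 2 intravenous saline, 7 ConA), as log2(CPM + 0.1) minus the median of the 17 vehicle livers; colours saturate at 8 in either direction. Most rows change at the line before the ConA livers, red in the upper blocks and blue in the lower ones, while Oas2, H2-Aa, Alb and Cyp2e1 stay pale.

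Markers of cell types were read in the same libraries. In bulk RNA, fewer cells of a type and less RNA per cell cannot be told apart. Kupffer cell markers, of the resident macrophages, fell in 8 of 9 in both comparisons (median log2 difference -2.97 against all vehicle livers and -2.95 against intravenous saline), and their summed level was 38.3 to 68.2 CPM in ConA livers against 182 to 466 CPM in vehicle livers. Clec4f, specific to Kupffer cells, stood at 8.47 to 24.97 CPM (median 13.3) against 72.6 to 176 CPM (median 116) (-2.97 ± 0.22 and -2.95 ± 0.34, adjusted p = 1.41e-11 and 0.000187). Cd5l lay at 5.02 to 9.24 CPM (median 7.24) against 32.3 to 127 CPM (median 89.7) (-3.49 ± 0.29 and -3.49 ± 0.23, adjusted p = 7.71e-11 and 1.61e-05). Adgre1, the macrophage antigen F4/80, stood at 1.10 to 2.09 CPM (median 1.39) against 5.24 to 27.5 CPM (median 18.4) (-3.50 ± 0.29 and -3.79 ± 0.29, adjusted p = 1e-10 and 3.26e-05). The highest ConA liver lay below the lowest vehicle liver for each of the 3 and for the sum.

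Endothelial markers moved in 2 directions. Those of sinusoidal endothelium fell in 7 of 11 and rose in 1, or in 2 without intravenous saline mouse 8 (median log2 difference -2.16 against all vehicle livers and -2.08 against intravenous saline), with a sum of 71.2 to 124 CPM against 139 to 228 CPM. Kdr, the VEGF receptor, fell to 0.321 to 0.665 CPM (median 0.413) from 7.95 to 13.7 CPM (median 10.5) (-4.60 ± 0.16 and -4.56 ± 0.30, adjusted p = 4.54e-18 and 1.61e-05). Gpr182 fell to 0.331 to 1.88 CPM (median 0.760) from 8.03 to 17.2 CPM (median 12.46) (-3.78 ± 0.25 and -3.61 ± 0.51, adjusted p = 1.46e-12 and 0.000572), and Clec4g to 2.56 to 14.8 CPM (median 7.92) from 41.8 to 73.5 CPM (median 49.8) (-2.68 ± 0.22 and -2.66 ± 0.42, adjusted p = 5.43e-11 and 0.0011). Lyve1, a hyaluronan receptor of sinusoidal and lymphatic endothelium, rose to 30.9 to 62.7 CPM (median 37.6) from 2.33 to 8.00 CPM (median 4.61) (3.21 ± 0.19 and 2.97 ± 0.49, adjusted p = 1.96e-13 and 0.00136).

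General endothelial markers rose in 4 of 6, 1 under library total scaling and 1 without intravenous saline mouse 7 (median log2 difference 1.40 against all vehicle livers and 1.5 against intravenous saline). Their sum was 77.5 to 160.1 CPM against 28.3 to 45.9 CPM. Cdh5, the junction protein VE-cadherin, measured 48.6 to 117 CPM (median 70.0) against 15.0 to 31.8 CPM (median 20.1) (1.75 ± 0.15 and 1.93 ± 0.36, adjusted p = 1.36e-10 and 0.00259), and Pecam1 at 12.4 to 30.4 CPM (median 20.6) against 5.40 to 8.32 CPM (median 7.19) (1.52 ± 0.14 and 1.65 ± 0.45, adjusted p = 6.58e-10 and 0.0178). The adjusted p against intravenous saline was 0.1 for Pecam1 (1.63) without intravenous saline mouse 7 and 0.0893 for Pecam1 (1.68) without intravenous saline mouse 8.

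Neutrophil markers rose in 5 of 6 tested (median log2 difference 4.74 against all vehicle livers and 5.36 against intravenous saline; 5.09 against intravenous saline with Ly6g at its bound), with a sum of 136 to 295 CPM against 1.74 to 52.9 CPM. S100a8 and S100a9, the calprotectin subunits, were 36.3 to 95.9 CPM (median 66.3) against 0 to 18.1 CPM (median 1.26) (4.42 ± 0.69 and 4.93 ± 0.52, adjusted p = 3.89e-06 and 0.000122) and 68.2 to 156 CPM (median 124) against 0.434 to 21.5 CPM (median 1.29) (5.06 ± 0.56 and 5.48 ± 0.48, adjusted p = 1.36e-08 and 5.39e-05). Csf3r, the receptor for Csf3, was called lower against all vehicle livers only: 0.276 to 1.37 CPM (median 0.747) against 0.588 to 9.91 CPM (median 1.81) (-1.51 ± 0.47 and -1.30 ± 0.55, adjusted p = 0.00579 and 0.0939). Elane, a granule protease, was near 0 in both groups, at 0 to 0.826 CPM (median 0.0827) against 0 to 0.173 CPM (median 0).

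Monocyte and recruited macrophage markers rose in 4 of 10 and fell in 1, or in 2 without ConA mouse 12 (median log2 difference 1.23 against all vehicle livers and 0.66 against intravenous saline). Cd14, the endotoxin co-receptor, stood at 173 to 380 CPM (median 302) against 1.39 to 22.7 CPM (median 2.71) (6.04 ± 0.43 and 6.61 ± 0.53, adjusted p = 4.97e-12 and 3.65e-05). Lyz2, lysozyme of all macrophages, fell to 8.79 to 19.9 CPM (median 13.8) from 22.8 to 81.5 CPM (median 62.2) (-1.83 ± 0.26 and -1.87 ± 0.27, adjusted p = 8.6e-07 and 0.00071). Ccr2, the receptor of classical monocytes, was too low to test, at 0 to 0.275 CPM (median 0.107) against 0.0499 to 1.08 CPM (median 0.301).

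T cell markers were called in both in none of 6 tested, in 1 lower without ConA mouse 3 and in 1 higher without ConA mouse 5 (median log2 difference 0.00 against all vehicle livers and 0.37 against intravenous saline), with a sum of 4.75 to 17.4 CPM against 2.74 to 16.9 CPM. Trac, the T cell receptor alpha constant gene, lay at 0.604 to 2.99 CPM (median 2.11) against 0.107 to 2.73 CPM (median 0.684) (0.99 ± 0.48 and 1.67 ± 0.61, adjusted p = 0.068 and 0.0566), and the kinase Lck at 0.747 to 1.49 CPM (median 0.950) against 0.249 to 2.82 CPM (median 0.869) (0.00 ± 0.39 and 0.37 ± 0.44, adjusted p = 0.994 and 0.547). Among NK and NKT markers Gzmb, granzyme B, alone rose, to 2.62 to 6.60 CPM (median 4.80) from 0 to 2.08 CPM (median 0.603) (2.80 ± 0.39 and 2.41 ± 0.43, adjusted p = 7.36e-07 and 0.00216). The B and plasma cell list was called in none of 2, the dendritic list in 1 of 3 (Ccr7, 4.92 and 4.98), the mast cell list in none of 1 and the mesothelial list in none of 2.

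Red blood cell markers rose in 4 of 5, all globins, with a sum of 1139 to 6303 CPM against 79.3 to 323 CPM; the livers were perfused. Hba-a1 stood at 367 to 2555 CPM (median 1565) against 12.6 to 116 CPM (median 40.8) (5.25 ± 0.34 and 5.91 ± 0.84, adjusted p = 6.68e-13 and 0.0006), and Hbb-bs at 479.6 to 2221 CPM (median 1671) against 11.3 to 70.4 CPM (median 34.6) (5.31 ± 0.29 and 5.66 ± 0.79, adjusted p = 3.32e-14 and 0.000559). Alas2, the heme enzyme of red cell precursors, was called lower against all vehicle livers only (-0.98 ± 0.20 and -1.12 ± 0.42, adjusted p = 0.000106 and 0.0616). The paired globin genes share most of their sequence, so the split between copies is uncertain. The part of blood in the results for neutrophil and other leukocyte genes was not tested.

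Stellate cell markers fell in 3 of 10, and in 1 when either intravenous saline mouse was left out (median log2 difference -0.68 against all vehicle livers and -0.66 against intravenous saline). Against all vehicle livers 5 were called lower and 3 higher, where 33.7% and 34.3% of all genes were. The 3 were Dcn, Rgs5 (0.98 ± 0.25) and Ecm1 (0.64 ± 0.15). Under library total scaling Rgs5 (0.29) and Ecm1 (-0.02) were not called, nor were they with only mice numbered above 4 (0.54 and 0.43). The sum of the 10 markers was 314 to 541 CPM in ConA livers (median 406.7) and 154 to 342 CPM in vehicle livers (median 269.8). Dcn, the matrix proteoglycan decorin, measured 97.2 to 249 CPM (median 147) against 20.1 to 120 CPM (median 41.4) (1.77 ± 0.24 and 1.08 ± 0.51, adjusted p = 4.36e-07 and 0.13), with overlapping groups. Without intravenous saline mouse 8 it differed from the other saline liver by 2.41 (adjusted p = 0.016). Lrat, which stores vitamin A, fell to 0.0916 to 0.413 CPM (median 0.320) from 0.658 to 4.19 CPM (median 2.10) (-3.03 ± 0.34 and -3.14 ± 0.62, adjusted p = 2.28e-08 and 0.0035). Acta2, the mark of activated stellate cells, was among the 3 that fell in both comparisons, at 0.758 to 3.42 CPM (median 1.28) against 0.559 to 5.95 CPM (median 3.38) (-1.02 ± 0.42 and -1.75 ± 0.49, adjusted p = 0.0333 and 0.0191), with overlapping groups. Bile duct markers rose in 2 of 7: Sox9 to 14.7 to 53.6 CPM (median 30.4) from 0.712 to 2.07 CPM (median 1.23) (4.67 ± 0.24 and 4.86 ± 0.74, adjusted p = 6.75e-15 and 0.000888) and Epcam to 3.51 to 7.37 CPM (median 4.72) from 0.362 to 1.79 CPM (median 0.698) (2.51 ± 0.25 and 3.07 ± 0.38, adjusted p = 2.68e-09 and 0.000292), while Krt7 was not called (-0.62 and -1.02). Hepatocyte markers fell in 1 of 8 (Ttr, not called without intravenous saline mouse 7), platelet markers rose in 1 of 2 (Pf4, in neither analysis that left out a saline mouse), and the 2 tested acinar genes, Cela1 and Cela2a, fell, 1 of them without ConA mouse 5 or either saline mouse. The adjusted p against intravenous saline was 0.147 for Acta2 (-1.44) without intravenous saline mouse 7 and 0.29 for Lrat (-1.32) without intravenous saline mouse 8. Acta2 was no longer called against all vehicle livers when any of ConA mice 2, 4, 5, 8 and 11 was left out (adjusted p 0.0562 to 0.0726).

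**Figure D5:**
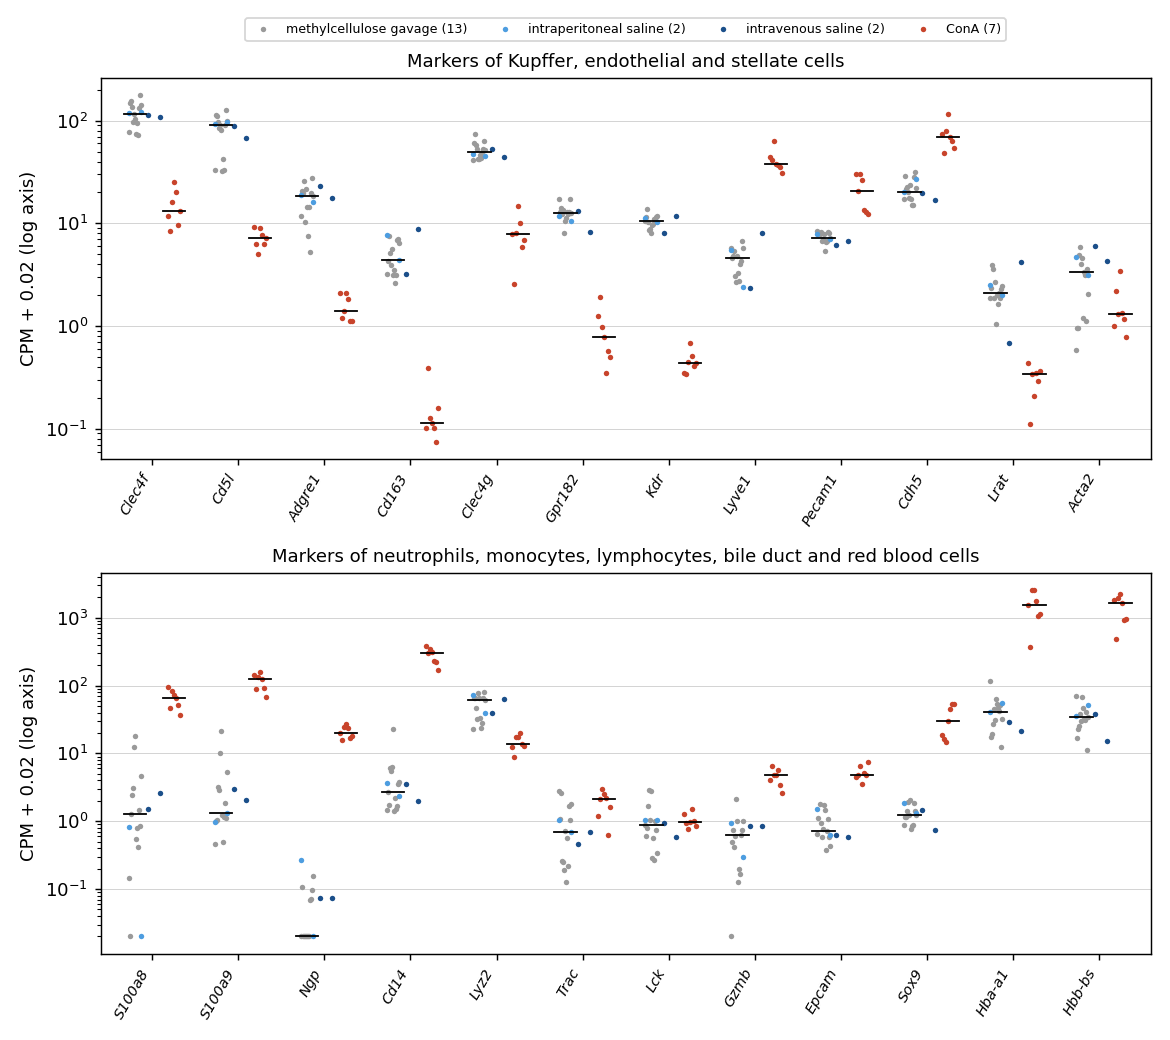
Levels of cell type markers in every liver, as CPM plus 0.02 on a log axis; points and black median lines are as in the plot of leading genes. Kupffer and most sinusoidal endothelial markers lie lower in the ConA livers, neutrophil, Cd14 and globin markers lie higher, and Trac and Lck overlap.

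The 7 ConA livers differed in part in their levels. Their correlations with each other (0.923 to 0.967) lay within the range among vehicle livers (0.886 to 0.971). Mouse 12 held the lowest value of the 7 in 1365 of the 4576 agreeing genes and the highest in 735, while mouse 8 held the highest in 880. Relative to the other 6, mouse 12 lay 0.20 lower (median log2) over the genes called higher and mouse 11 lay 0.12 lower, while mouse 4 lay 0.11 higher. Over the genes called lower, the shift towards the fall was 0.04 in mouse 12, 0.0 in mouse 11 and -0.01 in mouse 4. Over all agreeing genes the shift in the direction of change ran from -0.06 (mouse 12) to 0.04 (mouse 4). Cxcl10 was lowest in mouse 12 at 822 CPM. Without mouse 12, 4763 genes were called in both comparisons. The count of genes that fell went from 11 to 14 for conjugating enzymes and from 11 to 14 for bile acid genes. It stayed at 11 for cytochrome P450 genes, and the count of hypoxia and glycolysis genes that rose went from 14 to 13.

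Intravenous saline was also set against the other 15 vehicle livers, to see how far the choice of control moved genes. Of 15455 genes, 2 were called by edgeR, 641 had an unadjusted p under 0.05, and DESeq2 called 88. H3f3aos, an antisense gene, stood at 4.55 and 4.03 CPM in the 2 saline livers and 0.0328 to 0.272 in the others (5.57 ± 0.40, adjusted p = 9.95e-07). Greb1l stood at 0.247 and 6.87 CPM against 0.0502 to 0.382 (4.24 ± 0.59, adjusted p = 0.00852), high in mouse 8 only. Leaving out mouse 7 raised the count to 448, with mouse 8 then alone in its group.

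Among genes called against all vehicle livers only, the 5 largest differences belonged to Hmga1b, Hspb1, Fkbp1b, Hist1h4n and Hist2h3c2. Hmga1b measured 0 to 1248 CPM (median 327) against 0 to 69.4 CPM (median 0), with 69.4 and 27.96 CPM in the saline pair (5.52 ± 1.49 and 2.95 ± 2.42, adjusted p = 0.0021 and 0.377). Hspb1, a small heat shock protein, was 18.6 to 1270 CPM (median 93.6) against 8.49 to 21.97 CPM (median 12.4), with 19.1 and 8.49 CPM (4.42 ± 0.46 and 4.40 ± 1.77, adjusted p = 5.99e-09 and 0.0793). Fkbp1b stood at 1.39 to 7.80 CPM (median 1.99) against 0 to 1.65 CPM (median 0.191), with 1.65 and 0.110 CPM (3.38 ± 0.51 and 1.61 ± 0.96, adjusted p = 2.16e-06 and 0.22). The other 2, Hist1h4n and Hist2h3c2, are histone genes with close copies (3.83 and 3.95; -3.73 and -2.62).

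By gene class, 2000 of 11870 protein-coding genes tested in both comparisons rose and 2196 fell, where 16.2% and 18% of all genes did. Long intergenic RNAs had most of their calls on the lower side, with 27 of 247 higher and 83 lower, and antisense genes likewise, with 14 of 196 higher and 44 lower. Processed pseudogenes rose in 50 of 511 and fell in 14, both smaller shares than over all genes. Reads of a pseudogene and its parent are hard to tell apart.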

How the data were processed

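Liver mRNA was read by stranded poly(A) libraries on a NovaSeq instrument, single end, per the labels' protocols. The deposited table holds estimated counts (expected counts) for 54307 gene identifiers, of which 51482 were paired with a symbol; the submitters' processing notes name Salmon 1.6.0, R 4.1.3 and GRCm39 without giving their roles. The values are not whole and rise steeply as transcripts get shorter: over 4208 single-transcript genes, a gene's smallest value correlated with length at a Spearman rho of -0.944, with medians of 5.93 at 200 to 500 nucleotides and 0.28 at 2000 to 5000. They therefore appear to be corrected for length, so that levels can be compared between genes but an estimated count is not 1 read.

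Counts were rounded to whole numbers, so a 0 may be an estimate under 0.5, and tested with edgeR 4.0.16 (TMM scaling, filterByExpr, quasi-likelihood F test) in R 4.3.3, adjusted over all genes tested. CPM used the TMM library size. Steps were tested on simulated counts. Alternatives were DESeq2 1.42.0, limma 3.58.1 (log2 of CPM plus 1), other scalings and filters, other control sets, and leaving out each mouse. The labels do not say whether mice shared a cage or day, so p-values measure the spread between these mice. A fold against a group at 0 compared the other group's mean with a floor of 3 estimated counts in each library, or of 3 reads where 1 read of so short a transcript is worth more than 1 (the median smallest value of single-transcript genes within 10% of its length); it covers counting error only.

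The groups, the 33 gene lists and 17 marker lists were chosen with earlier results of these data known, and no list count is independent evidence. Genes named beyond the lists were the 15 leading on each side (called in both comparisons, groups apart, a mean of at least 5 CPM in the higher group, ordered by the difference from all vehicle livers), the 5 with the largest difference called against all vehicle livers only, up to 5 called between intravenous saline and other vehicle, and the 5 genes called against all vehicle livers that were most abundant in the vehicle livers. Except between intravenous saline and other vehicle, these rules took protein-coding genes and passed over mitochondrial genes, Mup genes and clone or model names. Single list members were named after their values were seen. Promoters came from RefSeq on GRCm38.p6, matched by symbol; they stop at the annotated start. The other 33 libraries of the series were not analysed here, and some genes that these rules name are not reported here.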

Additional observations from a re-analysis of the deposited data

Results flagged for a closer look

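Among 59 values tried over the 7 ConA livers, 9 had 1 mouse far from the others by Dixon's ratio at the 95% level, which chance passes in about 1 of 20 groups. Fgf23 reached 36.8 CPM in mouse 2, with the other 6 at 13.1 to 20.2. Mt3 reached 19.6 CPM in mouse 12, where the others had 2.24 to 7.84, and the scavenger receptor Cd163 stood at 0.366 CPM in the same mouse against 0.0549 to 0.138. The chromatin protein gene Hmga1b reached 1248 CPM in mouse 4 (others 0 to 482) and Hspb1 1270 CPM in mouse 11 (others 18.6 to 468). Fkbp1b was 7.80 CPM in mouse 5 and 1.39 to 3.64 elsewhere. Transferrin, Trf, stood at 24170 CPM in mouse 3 and at 15780 to 19370 in the others. The summed B and plasma cell markers reached 19.0 CPM in mouse 11 (others 5.44 to 10.0), and the summed mast cell and basophil markers 3.74 CPM in mouse 2 (others 0.345 to 1.71).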

How the results depend on the processing

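Against all vehicle livers the 9384 calls among 13805 genes became 5639 among the 7603 genes of at least 5 CPM. They became 5524 with a difference of at least 1, and stayed within 1.5 times of 9384 in the other alternatives. Against intravenous saline the 4827 calls became 3011 at 5 CPM and 3075 with mice numbered above 4, and the 4576 shared calls 2802 and 2952. Leaving out 1 mouse gave 9198 to 9503 calls against all vehicle livers, 3685 (without saline mouse 7) to 4989 (without ConA mouse 12) against intravenous saline, 3292 to 4763 shared, and 1 (without gavage mouse 18) to 448 (without saline mouse 7) between intravenous saline and other vehicle, with 4 without gavage mouse 17 or saline mouse 8. That last comparison, with 2 calls, had 88 by DESeq2 (19 higher, 69 lower), 1 without mitochondrial genes under either scaling, and none at 5 CPM. Where 1 saline mouse was left out, the other was assumed to vary like the ConA mice or, in the last comparison, like the other vehicle mice. Leaving out mitochondrial genes was chosen after seeing the data.

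Scaling reversed some signs. Under library total scaling the differences from all vehicle livers were -0.64 for Alb, -0.15 for Apoa1, -0.61 for Cebpa, -0.38 for Cpt1a, -0.46 for Cyp2e1, -0.02 for Ecm1, -0.61 for F2, -0.44 for Fbp1, -0.16 for Glul, -0.68 for H2-Aa, -0.46 for Igf1, -0.06 for Serpina3k and -0.20 for Trf. Without mitochondrial genes, that scaling gave -0.46 for Alb, -0.42 for Cebpa, -0.41 for F2, -0.27 for Fbp1 and -0.02 for Trf, with 2917 genes higher and 6418 lower and the median of all genes at -0.43. Ctss differed by 0.58 with only mice numbered 1 to 4. Lists whose balance turned were, under both library total scalings, NRF2 targets and metallothioneins (4 higher, 5 lower), the cell cycle (0 higher, 1 lower), coagulation (6 and 11) and fatty acid oxidation (3 and 8, or 3 and 5), under the first of them hepatokines (6 and 8), and, without intravenous saline mouse 7, plasma carriers (2 and 1). Of 9751 gene values under alternatives against all vehicle livers, 9596 either kept a call with its sign or stayed uncalled, whatever their sign. Against intravenous saline 4292 of 4476 did. The causes were not tested.

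Numbers 2, 3, 4, 8 and 12 occur in both ConA and gavage or saline mice, but same-numbered livers did not deviate together (correlations -0.004 to 0.093), and 2 of 5 correlated best with their own number. With a replicate block 7683 genes were called against all vehicle livers and 4451 in both. No paired analysis was possible against intravenous saline because only number 8 is shared. With 2 intravenous saline livers, small differences were not detectable.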
